A study of Mus musculus with 180 samples.

Results

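The data describe 35 mouse genes of glycolysis, gluconeogenesis, lactate handling and glycogen turnover, listed by symbol. The list was chosen with earlier results of these data known, so its shares of calls are not those of an independent set. All 35 were among the 13820 genes of the deposited table. The groups were TNFKO LPS mice (strain B6.129S-Tnftm1Gkl/J, which lacks tumour necrosis factor, given LPS), LPS mice (C57BL/6J given LPS) and PBS mice (C57BL/6J given PBS), with 4 female mice of 6 weeks in each. LPS is lipopolysaccharide, a bacterial cell wall component that sets off systemic inflammation, and the dose was 5 mg/kg. Mice were perfused with PBS and EDTA, and 15 tissues of each mouse were collected at the 12 hour time point, 1 library per tissue and mouse (180 libraries). Per-mouse values are given in the order of the mouse numbers, 9 to 12 for TNFKO LPS, 5 to 8 for LPS and 1 to 4 for PBS mice. The labels do not say which part of Tnf the mutant strain lacks. No TNFKO mice were given PBS. What the mutant strain does to the response to LPS therefore cannot be told apart from what it does without LPS.

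Libraries were primed from the poly(A) tail and reads lie near transcript ends, so levels are compared here within a gene and not between genes. Total counts ran from 311128 to 2573806 per library, and 1 count stood for a signal of 0.322 to 3.60, the deposited unit, which is scaled per library. The cell type markers of a tissue were highest in that tissue in 13 of 15 cases in PBS mice. The exceptions were adipocyte markers, higher in brown than in white fat, and B cell markers, higher in spleen than in inguinal lymph node. Tnf tags were present in TNFKO LPS mice, at 10.8 to 107, against 3.48 to 75.2 in LPS mice, and were called higher in TNFKO LPS than in LPS mice in 11 of 15 tissues. The 3′ tag of Tnf therefore does not check the genotype label. Libraries of 5 mouse and tissue pairs stood apart from their groups, and results that rest on them are also given without them. In brown fat they were those of LPS mice 7 and 8, with high muscle fibre markers, and of PBS mouse 1, with the lowest correlation with its group (median r 0.904). The others were brain of TNFKO LPS mouse 10 and lymph node of PBS mouse 1. The brain library had 473854 counts and a median r of 0.933 with its group. The lymph node library had high hepatocyte markers.

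Glycolysis breaks glucose down to pyruvate in the cytosol. Hexokinase traps glucose as glucose 6-phosphate, phosphofructokinase commits it to breakdown, and lactate dehydrogenase turns surplus pyruvate into lactate. Gluconeogenesis runs the other way in liver, kidney cortex and gut epithelium: pyruvate carboxylase and phosphoenolpyruvate carboxykinase bypass pyruvate kinase, fructose bisphosphatase bypasses phosphofructokinase, and glucose 6-phosphatase releases free glucose, which leaves through the transporter GLUT2. Fat cells use the carboxykinase to make the glycerol backbone of triglyceride. Activated leukocytes are known for a switch to glycolysis and lactate output, and the liver in endotoxaemia for a fall in glucose production.

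The promoters of genes at the centre of the results are shown first, taken from RefSeq windows on GRCm38.p6 (the mm10 build the processing notes name), 5′ to 3′ on the gene's strand and cut so that they hold no exon of the gene annotated in GENCODE M21. The Pck1 stretch ends at the base before the annotated gene, and the other 3 lie inside the annotated span of their genes, where a longer annotated transcript starts further upstream. Capitals mark letters that match 4 motifs searched on both strands: ACGTG (core of the hypoxia response element), CACGTG (an E-box, which always contains ACGTG), TGACGTCA and TTACGTCA (forms of the cAMP response element). Pck1, shown because it fell in 9 tissues, is read on the plus strand at chr2:173152823-173153047, with TTACGTCA starting 93 bases before the RefSeq start. Pfkfb3, shown because it was higher in the most tissues, is read on the minus strand at chr2:11502102-11502340, with CACGTG starting 53 bases before the second of its 2 RefSeq starts. Ldha, shown for its rise in liver, is read on the plus strand at chr7:46845554-46845803, with CACGTG starting 145 and 48 bases, ACGTG read on the other strand 34 bases and TGACGTCA 12 bases before the first of its 2 RefSeq starts. Slc16a3, shown for its rise in lung, is read on the plus strand at chr11:120948817-120949052, with ACGTG starting 27 bases before the start.
Pck1: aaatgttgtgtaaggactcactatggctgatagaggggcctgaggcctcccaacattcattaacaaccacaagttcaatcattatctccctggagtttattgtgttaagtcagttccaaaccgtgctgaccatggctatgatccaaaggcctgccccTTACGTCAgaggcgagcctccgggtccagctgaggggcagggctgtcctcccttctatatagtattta
Pfkfb3: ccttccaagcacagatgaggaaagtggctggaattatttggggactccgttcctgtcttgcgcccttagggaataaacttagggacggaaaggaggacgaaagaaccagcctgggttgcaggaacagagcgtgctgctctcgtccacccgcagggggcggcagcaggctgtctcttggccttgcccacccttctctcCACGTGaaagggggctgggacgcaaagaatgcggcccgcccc
Ldha: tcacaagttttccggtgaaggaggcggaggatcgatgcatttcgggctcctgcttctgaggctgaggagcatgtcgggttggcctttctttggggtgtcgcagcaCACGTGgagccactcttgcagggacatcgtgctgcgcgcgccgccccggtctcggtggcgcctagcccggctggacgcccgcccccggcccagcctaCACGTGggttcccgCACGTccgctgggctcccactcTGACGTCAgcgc
Slc16a3: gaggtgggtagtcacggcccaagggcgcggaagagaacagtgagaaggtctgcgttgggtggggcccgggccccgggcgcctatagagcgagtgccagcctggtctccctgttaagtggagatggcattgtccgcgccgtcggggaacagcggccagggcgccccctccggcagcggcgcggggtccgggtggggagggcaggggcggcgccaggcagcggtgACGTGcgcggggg

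Promoter windows of 300 bases (250 before and 50 after a RefSeq start) were found for 33 of the 35 genes, 50 windows in all, since 11 genes have several. Slc2a4 and Gys2 had none. ACGTG stood in 21 of these 50 windows (42%), belonging to 18 genes, and in 19.6% of all 32851 windows. CACGTG stood in 6 of 50 (12%), those of Fbp2, Ldha, Pcx, Pfkfb3, Pfkm and Slc16a1, and in 7.15% of all windows. For Pfkfb3 and Ldha that is the window printed above, and their other window, not printed, lacked it. TGACGTCA was found for Ldha alone, with 1.79% of all windows holding it, and TTACGTCA for Pck1 alone, with 0.499% of all windows. A loose form of the NF-kB consensus stood in 31 of 50 windows (62%) and in 50.8% of all windows. A match describes the letters only, and binding was not measured.

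In PBS mice 15 of the 35 genes had their highest mean signal in muscle. They were Hk2, Gpi1, Pfkm, Pfkfb1, Aldoa, Tpi1, Gapdh, Pgk1, Pgam2, Eno3, Pkm, Ldha, Slc2a4, Slc16a3 and Pygm, muscle forms such as Pfkm, Pgam2, Eno3 and Pygm among them. Brown fat was highest for Pfkl, Pfkfb3, Pgam1, Eno1, Pdk1, Pck1, Pcx and Pygl. Liver was highest for Slc2a2, Pklr and Gys2, kidney for G6pc and Fbp1, and heart for Ldhb and Slc16a1. Small intestine was highest for Fbp2 and Pfkp, brain for Hk1, colon for Slc2a1 and bone marrow for Hk3.

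With LPS, the gluconeogenesis gene Pck1 was lower in 9 of 15 tissues and the glucose transporter genes Slc2a2 and Slc2a4 in 4 each. The glycolysis regulator gene Pfkfb3 was higher in 12 tissues and the transporter gene Slc2a1 in 9. Of 525 gene and tissue pairs, 511 passed the filter on low values, which asked for 4 or more of a tissue's 12 libraries at a signal of 1 or above. Of the 35 genes, 33 were tested in all tissues (Pklr in 6, Gys2 in 10). In LPS against PBS mice, 76 of the 511 pairs (14.9%) were higher and 97 (19.0%) lower at an adjusted p under 0.05, the threshold for a call, where limma called 9.47% of all gene and tissue tests higher and 10.4% lower. In TNFKO LPS against LPS mice 26 pairs (5.09%) were higher and 24 (4.70%) lower, against 3.24% and 2.32% of all tests. All p-values below are limma's, adjusted by Benjamini-Hochberg over all genes of the tissue and comparison, and log2 changes are on the log2(signal + 1) scale, ± SE, which understates the change of low genes.

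With LPS, genes of the list were lower most often in kidney, in 17 of 35 (48.6% against 21.9%) of those tested, the second share in each bracket being the share of all genes tested in that tissue. Falls were also above the share of all genes in heart, 14 of 34 (41.2% against 12.3%), brown fat, 14 of 34 (41.2% against 9.28%), liver, 10 of 35 (28.6% against 13.5%), colon, 7 of 34 (20.6% against 7.76%), small intestine, 7 of 34 (20.6% against 13.4%), white fat, 5 of 34 (14.7% against 6.25%), skin, 5 of 33 (15.2% against 8.46%), and muscle, 4 of 35 (11.4% against 5.76%). They were near or under it in inguinal lymph node, 5 of 34 (14.7% against 12.6%), bone marrow, 5 of 34 (14.7% against 12.3%), thymus, 3 of 34 (8.82% against 8.83%), lung, 1 of 34 (2.94% against 13.9%), spleen, 0 of 34 (0% against 7.75%), and brain, 0 of 33 (0% against 2.03%). Genes of the list were higher most often in lung, 12 of 34 (35.3% against 11.7%), bone marrow, 11 of 34 (32.4% against 10.6%), spleen, 10 of 34 (29.4% against 8.04%), colon, 7 of 34 (20.6% against 9.45%), and liver, 7 of 35 (20.00% against 11.6%). The counts of higher genes were 5 of 34 (14.7% against 9.83%) in heart, 4 of 34 (11.8% against 9.09%) in brown fat, 4 of 34 (11.8% against 9.92%) in small intestine and 2 of 33 (6.06% against 2.32%) in brain. They were under the share of all genes in kidney, 5 of 35 (14.3% against 16.2%), muscle, 1 of 35 (2.86% against 6.72%), white fat, 2 of 34 (5.88% against 7.49%), skin, 1 of 33 (3.03% against 9.45%), inguinal lymph node, 3 of 34 (8.82% against 9.97%), and thymus, 2 of 34 (5.88% against 9.70%). Lung, bone marrow and spleen, the tissues with the most rises, together held 33 of the 76. Kidney, heart and brown fat, those with the most falls, held 45 of the 97. Over all genes, lung, bone marrow and spleen held 1544, 1381 and 1079 of 18942 rises. Kidney, heart and brown fat held 2894, 1641 and 1258 of 20775 falls. The median log2 change of the genes tested was -0.35 in kidney and -0.26 in brown fat, against -0.05 and 0.06 for all genes there, and 0.27 in spleen and 0.17 in lung, against -0.03 and -0.06 for all genes.

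In TNFKO LPS against LPS mice kidney held the most calls, with 11 of 35 (31.4% against 13.2%) of the genes higher and 4 of 35 (11.4% against 6.82%) lower. Liver followed with 6 of 35 (17.1% against 5.96%) higher and 2 of 35 (5.71% against 3.43%) lower. Muscle had 0 of 35 (0% against 1.82%) higher and 6 of 35 (17.1% against 2.16%) lower, and brown fat 3 of 34 (8.82% against 1.70%) higher and 2 of 34 (5.88% against 1.23%) lower. The other tissues each had 3 or fewer genes called in a direction. Of these the higher counts were 3 of 34 (8.82% against 2.57%) in bone marrow, 1 of 34 (2.94% against 0.790%) in white fat, 1 of 34 (2.94% against 2.56%) in spleen and 1 of 34 (2.94% against 1.72%) in inguinal lymph node. The lower counts were 3 of 34 (8.82% against 2.65%) in small intestine, 2 of 33 (6.06% against 1.36%) in skin, 1 of 34 (2.94% against 2.07%) in white fat, 1 of 34 (2.94% against 2.35%) in heart, 1 of 34 (2.94% against 1.31%) in colon, 1 of 34 (2.94% against 2.28%) in lung and 1 of 34 (2.94% against 1.59%) in spleen. No gene of the list was higher in heart (3.32% of all genes), small intestine (4.47%), colon (2.51%), lung (3.71%), skin (1.43%), brain (0.550%) or thymus (2.30%). None was lower in brain (0.467%), bone marrow (3.55%), inguinal lymph node (1.40%) or thymus (2.16%).

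**Figure D1:**
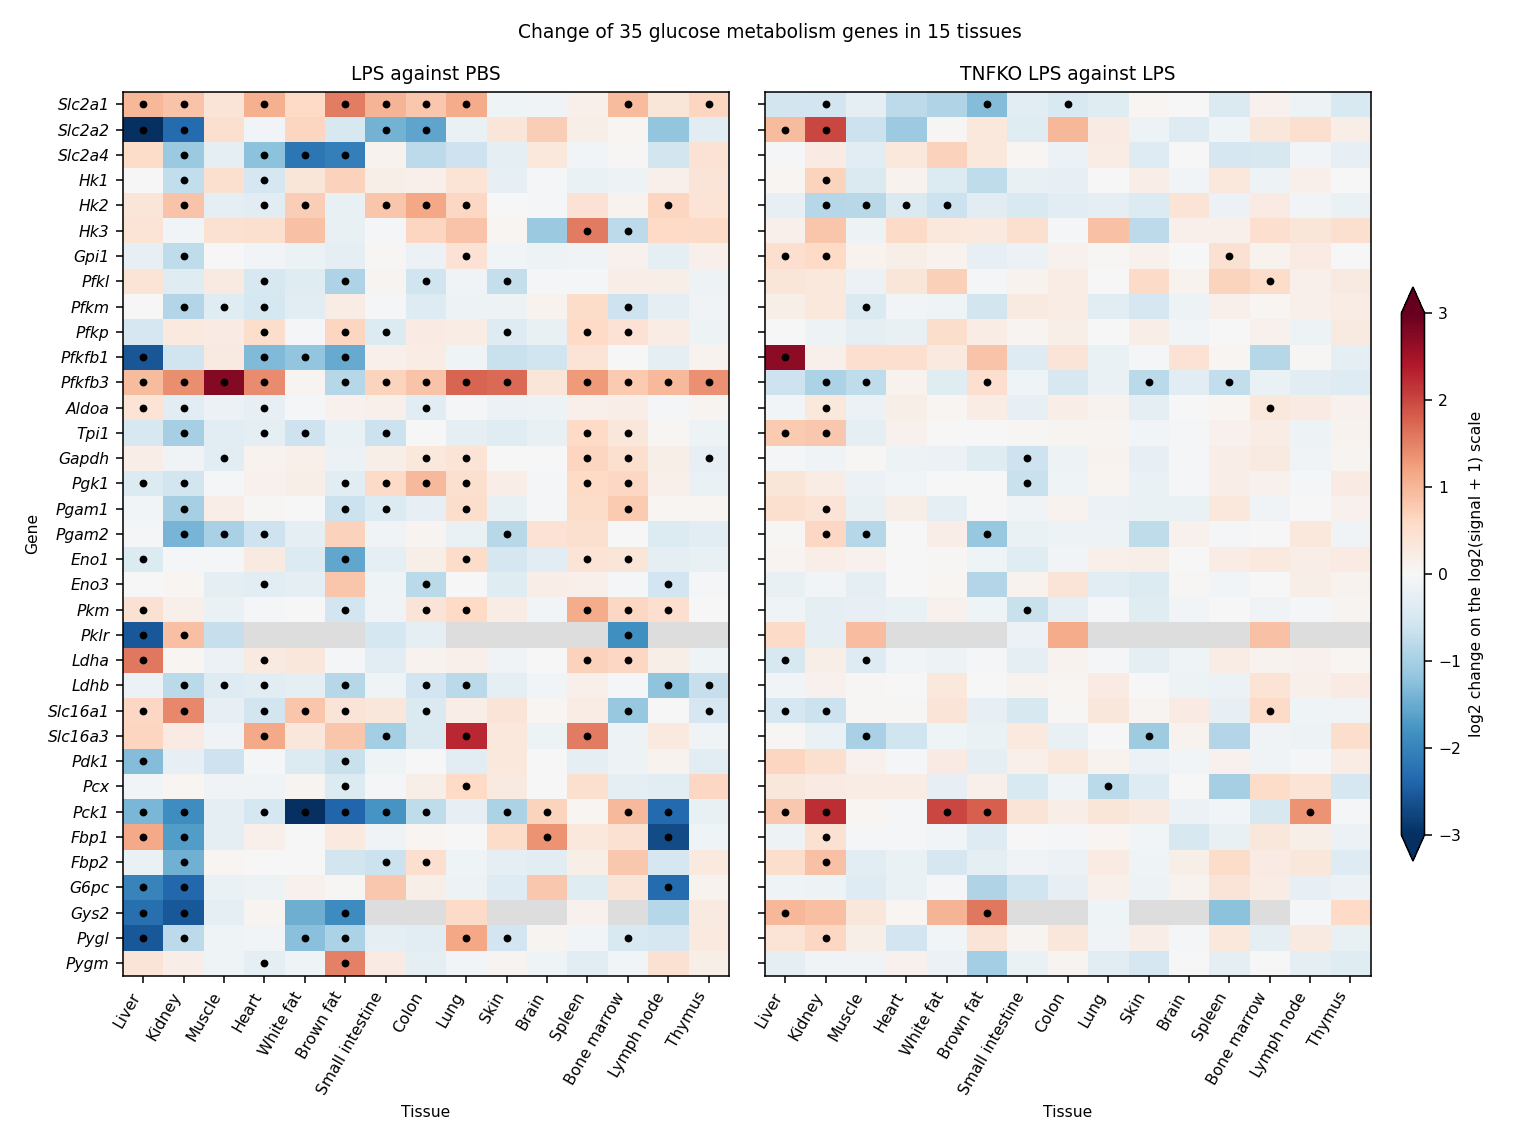
Log2 change of each of the 35 genes (rows) in each of 15 tissues (columns), LPS against PBS mice on the left and TNFKO LPS against LPS mice on the right, red higher and blue lower, with the scale ending at 3 in each direction and grey for pairs below the filter. Dots mark an adjusted p under 0.05: 76 higher and 97 lower on the left, 26 higher and 24 lower on the right, with 15 of the 50 marks on the right in the kidney column.

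The response to LPS differed among tissues for 34 of the 35 genes by limma's moderated F test over 14 tissue differences (65.3% of all genes). The exception was Pcx (adjusted p = 0.122). The difference of TNFKO LPS from LPS mice varied among tissues for 20 of 35 genes (25.6% of all genes), with Pck1 (adjusted p = 6.3e-12), Gapdh (1.6e-06), Slc16a1 (5.2e-06) and Pgk1 (9.0e-06) among them, and G6pc (0.807) and Fbp1 (0.54) not. This joint fit takes 1 spread per gene for all tissues.

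Pck1 and G6pc fell with LPS in liver and kidney, while Fbp1 fell in kidney and rose in liver. Pck1, the cytosolic phosphoenolpyruvate carboxykinase, was lower in 9 tissues and higher in 2, and G6pc, the catalytic subunit of glucose 6-phosphatase, was lower in liver and kidney. In TNFKO LPS mice Pck1 was higher than in LPS mice in 5 tissues, kidney, brown fat, white fat, liver and lymph node, while G6pc was called in no tissue in that comparison. In bulk tissue, fewer cells of a type and less RNA per cell cannot be told apart.

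In kidney, the Pck1 signal was 2568, 2715, 2539.7 and 3774 in TNFKO LPS mice and 596, 689, 494 and 708 in LPS mice. PBS mice had 1834, 2308, 2721 and 2194. All LPS mice lay below all mice of the other groups, and TNFKO LPS and PBS mice overlapped. The fall with LPS was 3.64-fold on the means (log2 change -1.86 ± 0.12, adjusted p = 6.3e-12), and TNFKO LPS mice were 4.66-fold above LPS mice (log2 change 2.21 ± 0.12, adjusted p = 1.1e-11). Proximal tubule markers (5 genes, none at 0 in all libraries of a group) summed to 4520.0 to 5118 in TNFKO LPS mice, 3294 to 5512 in LPS mice and 8676 to 10783 in PBS mice in kidney. That sum was lower in both LPS-treated groups, which overlapped with each other, and its part in the falls with LPS was not tested.

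In liver, Pck1 had a signal of 2191, 1525, 1986 and 2602 in TNFKO LPS mice and 928, 1769.8, 1263 and 893 in LPS mice. PBS mice had 3009, 2769, 3233 and 3102. LPS mice lay below PBS mice without overlap (log2 change -1.37 ± 0.16, adjusted p = 3.9e-08). TNFKO LPS mice were higher than LPS mice (log2 change 0.81 ± 0.16, adjusted p = 6.2e-04), but LPS mouse 6, the highest of its group, lay among them. Hepatocyte markers (5 genes, none at 0) summed to 100669 to 130400.0 in TNFKO LPS mice, 90336 to 128862 in LPS mice and 203849 to 226822 in PBS mice in liver, and the part of this fall in the results for liver was not tested.

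In white fat the Pck1 signal was 1167, 595, 1330.2 and 598 in TNFKO LPS mice and 224, 685, 112 and 121 in LPS mice. PBS mice had 2739, 2285, 2054 and 1761. The fall with LPS was the largest of the 35 genes in any tissue but liver (log2 change -3.35 ± 0.36, adjusted p = 3.3e-07), and TNFKO LPS mice were higher (log2 change 2.01 ± 0.36, adjusted p = 0.00287), again with LPS mouse 6 inside their range. In brown fat it was 3001, 2260.2, 3411 and 2992 in TNFKO LPS mice and 873, 1564, 396 and 872 in LPS mice. PBS mice had 3096, 4417, 4621 and 5398. Here LPS mice lay below every mouse of the other groups (log2 change -2.37 ± 0.26, adjusted p = 6.8e-07), and TNFKO LPS mice lay above them (log2 change 1.80 ± 0.26, adjusted p = 2.3e-04) and overlapped with PBS mice.

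In small intestine Pck1 had a signal of 159, 82.4, 97.6 and 240.2 in TNFKO LPS mice and 151, 169.7, 52.4 and 79.4 in LPS mice. PBS mice had 349.8, 300.3, 415 and 349. It was lower with LPS (log2 change -1.78 ± 0.30, adjusted p = 1.2e-04), and the TNFKO LPS and LPS mice overlapped (adjusted p = 0.513). Enterocyte markers (5 genes, none at 0) summed to 4772 to 8163 in TNFKO LPS mice, 2499 to 9399 in LPS mice and 13879.7 to 18756 in PBS mice there, and their part in the result was not tested. Smaller falls with LPS and no overlap were seen in colon, at 107 to 123 in LPS mice, against 169 to 225 in PBS mice (log2 change -0.76 ± 0.11, adjusted p = 1.3e-05), and in heart, at 61.5 to 77.8 in LPS mice, against 90.6 to 141 in PBS mice (log2 change -0.53 ± 0.14, adjusted p = 0.00479). In skin the groups overlapped, at 45.3 to 151 in LPS mice, against 96.7 to 204 in PBS mice (log2 change -0.95 ± 0.28, adjusted p = 0.0222). Pck1 in skin lost its call in LPS against PBS mice without mouse 1, 3, 5, 7 or 8, or by edgeR (adjusted p up to 0.0951).

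Pck1 went the other way in bone marrow and brain. In bone marrow it had a signal of 46.6, 77.9, 123 and 47.03 in TNFKO LPS mice, 74.8, 99.3, 147 and 74.7 in LPS mice and 49.2, 51.4, 44.3 and 45.8 in PBS mice, with LPS mice all above PBS mice (log2 change 0.98 ± 0.22, adjusted p = 0.00168). Proximal tubule markers were also higher in LPS than in PBS mice there, with sums of 98.6 to 494 in TNFKO LPS mice, 105 to 226 in LPS mice and 51.4 to 71.5 in PBS mice. All marker sums of TNFKO LPS mice lay above those of PBS mice, but their Pck1 signals of 46.6 and 47.03 lay within the PBS range. In brain the Pck1 signal was 43.6, 73.7, 51.03 and 41.3 in TNFKO LPS mice, 50.7, 61.4, 53.9 and 64.6 in LPS mice and 38.2, 33.2, 35.9 and 35.5 in PBS mice, and LPS mice again lay above PBS mice (log2 change 0.67 ± 0.15, adjusted p = 0.00741), while hepatocyte markers summed to 1578 to 1997 in TNFKO LPS mice, 1924 to 2905 in LPS mice and 1695 to 2188 in PBS mice. The part of these markers in either rise was not tested.

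Inguinal lymph node held signal of several kidney genes in PBS mice. Its Pck1 signal was 41.5, 158, 144 and 237 in TNFKO LPS mice and 53.5, 56.7, 41.7 and 41.3 in LPS mice. PBS mice had 381, 332, 163 and 176. Fbp1, the liver and kidney fructose bisphosphatase, had 11.05, 14.7, 14.8 and 15.2 in TNFKO LPS mice, 11.5, 14.4, 15.6 and 7.97 in LPS mice and 126, 40.6, 91.7 and 102 in PBS mice, and G6pc had 2.29, 4.75, 2.46 and 3.65 in TNFKO LPS mice and 3.29, 3.02, 3.91 and 5.98 in LPS mice. PBS mice had 19.00, 10.3, 29.3 and 49.99. LPS mice lay below PBS mice for all 3 genes (Pck1 log2 change -2.33 ± 0.36, adjusted p = 7.1e-05). The change of Fbp1 was -2.69 and that of G6pc -2.30, with adjusted p of 2.0e-07 and 5.4e-05. Proximal tubule markers fell alongside, with sums of 60.6 to 64.5 in TNFKO LPS mice, 49.97 to 71.2 in LPS mice and 238 to 723 in PBS mice, and their part in the results was not tested. Of the 3 genes, Fbp1 and G6pc were highest in kidney of PBS mice, but Pck1 in brown fat (mean 4383). The part of fat in the Pck1 signal was not tested either. Pck1 was higher in TNFKO LPS than in LPS lymph nodes (log2 change 1.34 ± 0.36, adjusted p = 0.0467) in 3 of 4 mice, while the tubule marker sums of these groups overlapped. Hepatocyte markers summed to 3898 in the lymph node of PBS mouse 1 and to 393 to 435 in the others of its group. Pck1 in lymph node lost its call in TNFKO LPS against LPS mice without mouse 4, 5, 7, 8, 10, 11 or 12, or without the filter (adjusted p up to 0.163).

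**Figure D2:**
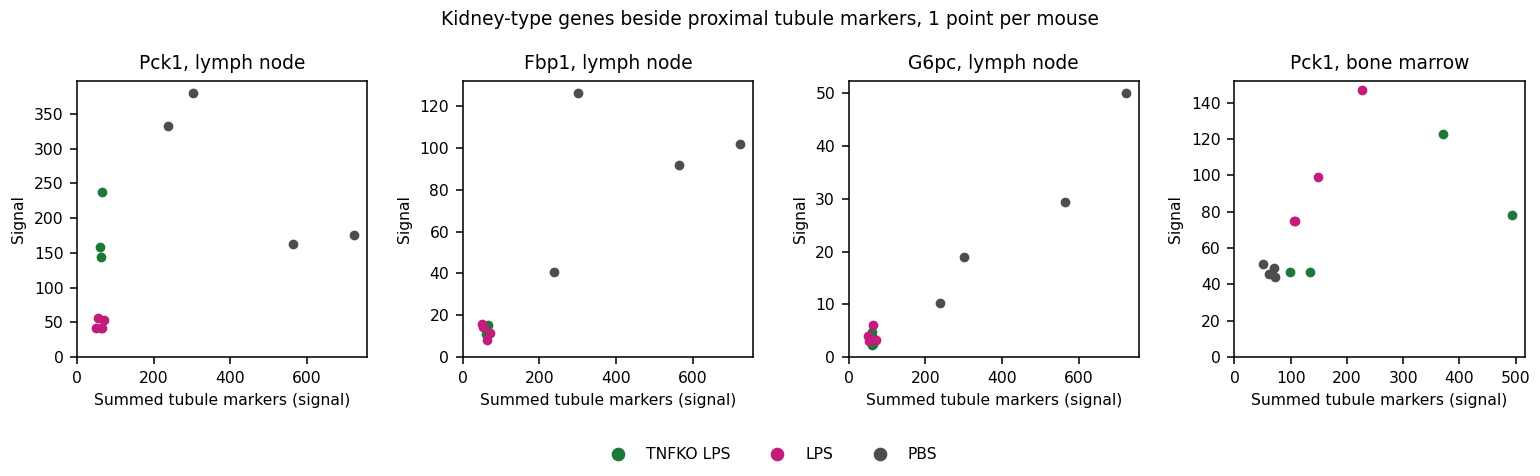
Signal of Pck1, Fbp1 and G6pc in inguinal lymph node and of Pck1 in bone marrow (y axis) against the summed signal of 5 proximal tubule markers in the same library (x axis), 1 point per mouse, with TNFKO LPS mice in green, LPS mice in magenta and PBS mice in grey. In lymph node both LPS-treated groups stand at marker sums of 49.97 to 71.2 and the PBS mice at 238 to 723, and of the 3 genes Pck1 spreads most among TNFKO LPS mice.

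G6pc in liver had a signal of 119.8, 103, 146 and 149.7 in TNFKO LPS mice and 105, 208, 155 and 111 in LPS mice. PBS mice had 599.9, 647, 522 and 505. In kidney it was 87.1, 115, 119 and 131 in TNFKO LPS mice and 166, 97.4, 100.5 and 148 in LPS mice. PBS mice had 674, 653, 626 and 615. In both tissues every LPS-treated mouse of either genotype lay below every PBS mouse. The fall in LPS mice was 3.93-fold on the means in liver (log2 change -2.01 ± 0.16, adjusted p = 5.0e-11) and 5.02-fold in kidney (log2 change -2.36 ± 0.14, adjusted p = 6.9e-13). TNFKO LPS and LPS mice overlapped in both, with changes of -0.12 (adjusted p = 0.784) and -0.16 (adjusted p = 0.491), in the same kidneys in which Pck1 differed.

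Fbp1 moved in opposite directions in the main gluconeogenic organs. In liver it had a signal of 2187, 2299, 2063 and 2349 in TNFKO LPS mice and 2339, 2517, 2177 and 2866 in LPS mice. PBS mice had 1092, 1124, 1179.8 and 1111. All 8 LPS-treated mice lay above all PBS mice (log2 change 1.13 ± 0.09, adjusted p = 6.8e-11), and the genotypes overlapped (adjusted p = 0.423). In kidney the signal was 635, 551, 583 and 638 in TNFKO LPS mice and 415, 345, 458 and 552 in LPS mice. PBS mice had 1287, 1485, 1553 and 1289. There all LPS-treated mice lay below all PBS mice (log2 change -1.68 ± 0.11, adjusted p = 2.2e-12), and TNFKO LPS mice were higher than LPS mice (log2 change 0.46 ± 0.11, adjusted p = 0.00259) with 1 library each in the other group's range. In brain, Fbp1 was low, at 18.9 to 27.6 in TNFKO LPS mice, 14.3 to 52.5 in LPS mice and 9.08 to 14.5 in PBS mice, and called higher with LPS (log2 change 1.34 ± 0.25, adjusted p = 0.00152) although the groups overlapped.

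Fbp2, the muscle-type fructose bisphosphatase gene, had its highest PBS level in small intestine. In kidney its signal was 36.5, 27.1, 22.2 and 31.1 in TNFKO LPS mice and 17.3, 18.6, 12.5 and 12.9 in LPS mice. PBS mice had 31.4, 41.7, 50.2 and 49.9. It fell with LPS (log2 change -1.43 ± 0.19, adjusted p = 8.2e-07), and TNFKO LPS mice lay above LPS mice (log2 change 0.89 ± 0.19, adjusted p = 0.00127). In small intestine it was 172 to 215 in LPS mice, against 272 to 325 in PBS mice (log2 change -0.63 ± 0.12, adjusted p = 3.0e-04), and in colon, against that direction, 142 to 170.2 in LPS mice, against 89.97 to 128 in PBS mice (log2 change 0.49 ± 0.12, adjusted p = 0.00271). Pcx, pyruvate carboxylase, which makes the oxaloacetate that PCK1 uses, was lower with LPS in brown fat, at 182 to 203 in LPS mice, against 227 to 316 in PBS mice (log2 change -0.42 ± 0.12, adjusted p = 0.0184), and higher in lung (log2 change 0.61 ± 0.22, adjusted p = 0.046). Its lung signal was 16.8, 25.3, 19.98 and 28.9 in TNFKO LPS mice, 50.97, 21.96, 45.7 and 49.8 in LPS mice and 25.1, 27.2, 25.1 and 26.6 in PBS mice, with LPS mouse 6 among the low values and the other LPS mice high. TNFKO LPS lungs were lower than LPS lungs (log2 change -0.82 ± 0.22, adjusted p = 0.0257), with that mouse again in their range. Pcx in brown fat lost its call in LPS against PBS mice without mouse 2, 4 or 7 (adjusted p up to 0.0816). Pcx in lung lost its call in LPS against PBS mice without mouse 1, 2, 3, 4, 5, 7, 8, 10 or 11, with a pseudocount of 0.25, without the filter, or with the 2 groups fitted alone (adjusted p up to 0.156). Pcx in lung lost its call in TNFKO LPS against LPS mice without mouse 5, 7, 8, 9 or 11, or with the 2 groups fitted alone (adjusted p up to 0.104).

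**Figure D3:**
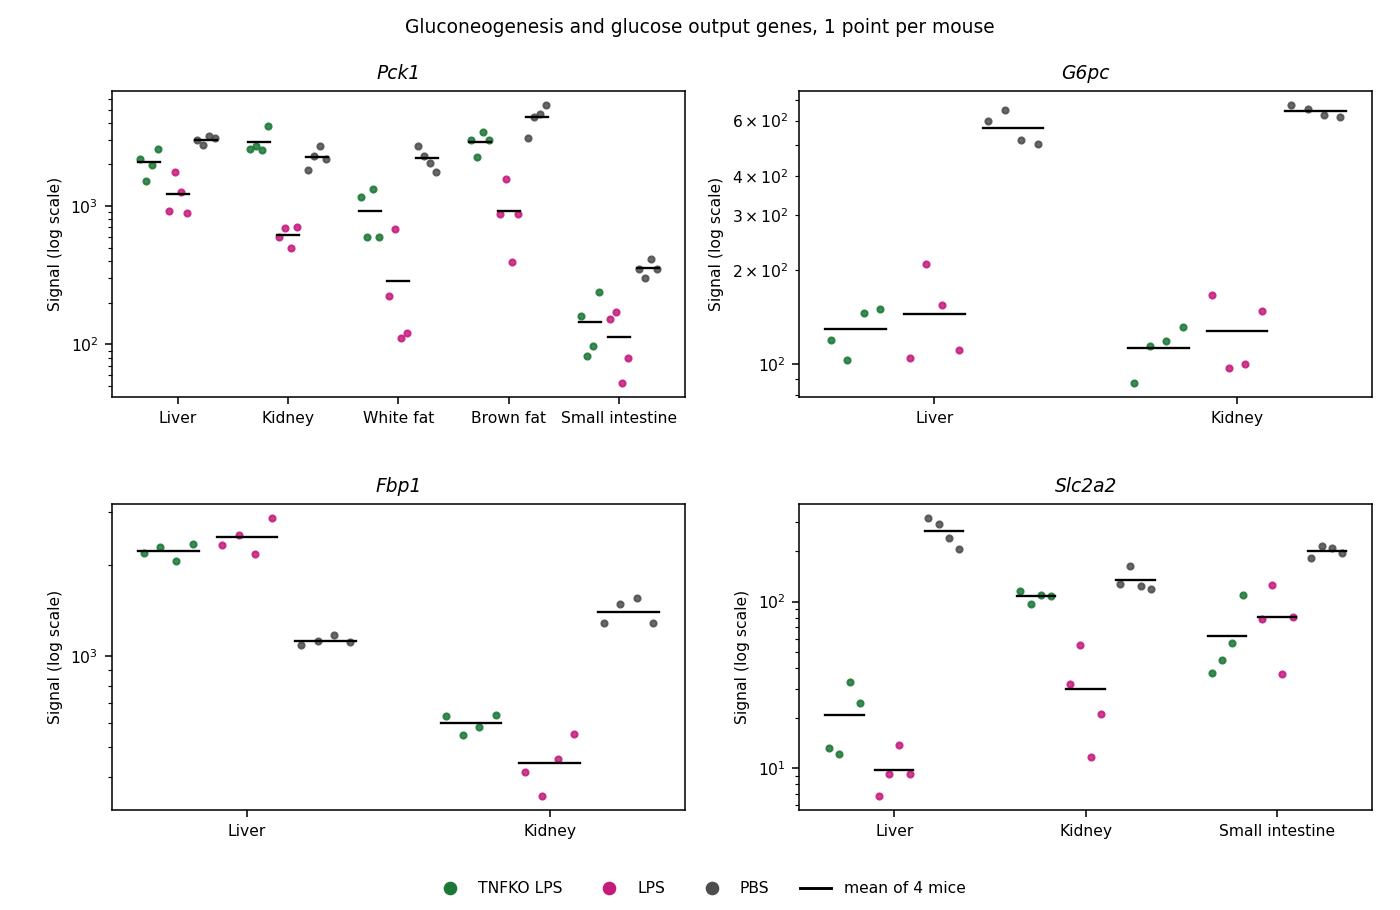
Signal (log scale) of Pck1, G6pc, Fbp1 and Slc2a2 in the tissues named on the x axis, 1 point per mouse and a bar at the mean of 4, with TNFKO LPS mice in green left of LPS mice in magenta and PBS mice in grey. Pck1 in kidney and brown fat shows LPS mice below both other groups, G6pc shows both LPS-treated groups low, and Fbp1 is above PBS mice in liver and below them in kidney.

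Glucose transporter genes split by type. Slc2a1, which encodes the widespread transporter GLUT1, was higher with LPS in 9 tissues and lower in none. Slc2a2, which encodes GLUT2 of liver, kidney and gut, was lower in 4. Slc2a4, which encodes the insulin-dependent GLUT4, was lower in 4 and higher in none.

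Slc2a2 in liver had a signal of 13.2, 12.2, 33.1 and 24.6 in TNFKO LPS mice and 6.81, 9.29, 13.8 and 9.23 in LPS mice. PBS mice had 318, 293, 242 and 208. LPS and PBS mice were separated by the largest change of the list in any tissue, 27.1-fold on the means (log2 change -4.65 ± 0.26, adjusted p = 1.9e-14). TNFKO LPS livers were higher than LPS livers (log2 change 0.94 ± 0.26, adjusted p = 0.0182), with overlap, and far below PBS livers. In kidney Slc2a2 had a signal of 115, 96.6, 110.3 and 108 in TNFKO LPS mice and 32.02, 55.1, 11.7 and 21.2 in LPS mice. PBS mice had 128, 164, 124 and 119.7. It fell 4.46-fold with LPS (log2 change -2.31 ± 0.25, adjusted p = 4.1e-08), and every TNFKO LPS kidney lay above every LPS kidney (log2 change 2.01 ± 0.25, adjusted p = 2.7e-06) and below every PBS kidney. In small intestine the signal was 37.3, 44.6, 56.5 and 109 in TNFKO LPS mice, 78.9, 125, 36.7 and 81.1 in LPS mice and 182, 216, 209 and 195 in PBS mice, lower with LPS (log2 change -1.43 ± 0.28, adjusted p = 6.2e-04), and the genotypes overlapped (adjusted p = 0.487). Colon had a low level, 2.77 to 3.71 in TNFKO LPS mice, 0 to 2.49 in LPS mice and 4.09 to 6.43 in PBS mice, also lower with LPS (log2 change -1.58 ± 0.43, adjusted p = 0.00999). Slc2a2 in liver lost its call in TNFKO LPS against LPS mice without mouse 5, 11 or 12, or with the 2 groups fitted alone (adjusted p up to 0.122). Slc2a2 in colon lost its call in LPS against PBS mice without mouse 7 (adjusted p = 0.0547).

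Slc2a4 in white fat had a signal of 23.2, 21.7, 23.6 and 29.7 in TNFKO LPS mice and 10.1, 17.3, 22.7 and 11.8 in LPS mice. PBS mice had 90.2, 71.2, 65.1 and 55.99. In brown fat it was 45.01, 64.8, 69.9 and 70.2 in TNFKO LPS mice and 47.4, 40.6, 58.2 and 53.4 in LPS mice. PBS mice had 187, 195, 239 and 215. Every LPS-treated mouse lay below every PBS mouse in both fats (log2 change -2.16 ± 0.23, adjusted p = 3.1e-07 in white fat and log2 change -2.05 ± 0.16, adjusted p = 9.4e-09 in brown fat). In heart it was 107, 99.9, 95.7 and 112 in TNFKO LPS mice, 73.9, 78.6, 81.3 and 98.6 in LPS mice and 189, 221, 208 and 165 in PBS mice, also without overlap with PBS mice (log2 change -1.23 ± 0.12, adjusted p = 2.6e-09). Kidney had 5.34 to 9.61 in LPS mice, against 15.2 to 20.2 in PBS mice (log2 change -1.11 ± 0.22, adjusted p = 1.9e-04). In muscle, where Slc2a4 was highest in PBS mice, it was not called (log2 change -0.27 ± 0.13, adjusted p = 0.182). In TNFKO LPS against LPS mice no tissue was called for Slc2a4, with changes of -0.50 to 0.69.

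Slc2a1 rose most in brown fat, where its signal was 15.97, 10.6, 16.1 and 14.2 in TNFKO LPS mice and 22.4, 24.1, 64.2 and 49.8 in LPS mice. PBS mice had 10.8, 16.4, 8.58 and 12.6. LPS mice lay above both other groups there (log2 change 1.54 ± 0.32, adjusted p = 0.00128), with mice 7 and 8, which also had the most muscle fibre marker signal in that tissue, highest, and TNFKO LPS mice were lower than LPS mice (log2 change -1.31 ± 0.32, adjusted p = 0.0262). In colon it was 72.6, 74.8, 95.7 and 68.96 in TNFKO LPS mice, 107, 113, 97.9 and 108 in LPS mice and 57.2, 66.9, 65.6 and 52.9 in PBS mice, with all LPS mice above all others (log2 change 0.81 ± 0.13, adjusted p = 3.5e-05 with LPS, and log2 change -0.46 ± 0.13, adjusted p = 0.045 for TNFKO LPS against LPS). In lung the signal was 22.1, 24.00, 20.8 and 27.9 in TNFKO LPS mice, 36.6, 19.04, 32.4 and 39.7 in LPS mice and 15.03, 10.7, 17.4 and 12.1 in PBS mice, and LPS mice lay above PBS mice (log2 change 1.12 ± 0.22, adjusted p = 2.8e-04). In bone marrow it was 16.6, 27.2, 15.9 and 24.1 in TNFKO LPS mice, 16.5, 20.04, 17.5 and 20.9 in LPS mice and 9.19, 10.4, 8.54 and 8.89 in PBS mice, with both LPS-treated groups above PBS mice (log2 change 0.94 ± 0.18, adjusted p = 4.2e-04). Slc2a1 in brown fat lost its call in LPS against PBS mice without the brown fat libraries that stood apart (log2 change 0.88, adjusted p = 0.111). Slc2a1 in brown fat lost its call in TNFKO LPS against LPS mice without mouse 7, 8, 10, 11 or 12 (adjusted p up to 0.152). Its call in TNFKO LPS against LPS mice was lost without the brown fat libraries that stood apart (log2 change -0.69, adjusted p = 0.46). Slc2a1 in colon lost its call in TNFKO LPS against LPS mice without mouse 1, 5, 6, 7, 8, 9, 10 or 12, or with the 2 groups fitted alone (adjusted p up to 0.161).

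Smaller rises of Slc2a1 without overlap were seen in small intestine, at 12.7 to 25.2 in LPS mice, against 7.05 to 11.5 in PBS mice (log2 change 1.01 ± 0.24, adjusted p = 0.00299), and thymus, at 19.6 to 25.1 in LPS mice, against 9.76 to 15.5 in PBS mice (log2 change 0.65 ± 0.24, adjusted p = 0.0476). In kidney the signal was 37.2, 40.9, 42.6 and 33.99 in TNFKO LPS mice, 54.03, 41.6, 93.1 and 54.5 in LPS mice and 32.1, 32.3, 27.96 and 34.2 in PBS mice, higher with LPS (log2 change 0.86 ± 0.17, adjusted p = 2.8e-04) and lower in TNFKO LPS than in LPS mice (log2 change -0.58 ± 0.17, adjusted p = 0.0188). Liver (16.3 to 31.6 in LPS mice, against 5.29 to 22.3 in PBS mice) and heart (17.1 to 45.2 in LPS mice, against 9.87 to 21.1 in PBS mice) were called higher with overlapping groups. LPS mouse 6 was the lowest of the LPS mice for Slc2a1 in 6 tissues. Slc2a1 in thymus lost its call in LPS against PBS mice without mouse 1, 3, 4, 5, 6, 7, 8, 9 or 11, or without the filter (adjusted p up to 0.172). Slc2a1 in kidney lost its call in TNFKO LPS against LPS mice without mouse 7 or 12 (adjusted p up to 0.112).

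Hexokinase genes followed different tissues. Hk2, the insulin-responsive hexokinase of muscle and fat, was higher with LPS in 6 tissues and lower in heart. It was lower in TNFKO LPS than in LPS mice in 4. Hk2 in colon had a signal of 181, 179, 199 and 137 in TNFKO LPS mice, 195, 144, 322 and 255 in LPS mice and 133, 100.3, 92.5 and 73.04 in PBS mice, and LPS mice lay above PBS mice (log2 change 1.16 ± 0.18, adjusted p = 1.3e-05). In white fat it was 71.97, 60.7, 56.8 and 65.7 in TNFKO LPS mice and 119, 84.1, 96.1 and 104 in LPS mice. PBS mice had 49.2, 75.5, 66.2 and 52.5. LPS mice were above both other groups (log2 change 0.73 ± 0.16, adjusted p = 0.00286 with LPS, and log2 change -0.64 ± 0.16, adjusted p = 0.0301 for TNFKO LPS against LPS), and TNFKO LPS and PBS mice overlapped. In kidney it was 15.5, 22.8, 10.9 and 17.97 in TNFKO LPS mice, 25.3, 23.7, 47.7 and 29.6 in LPS mice and 15.4, 17.5, 15.9 and 17.1 in PBS mice, again with LPS mice above both other groups (log2 change 0.85 ± 0.22, adjusted p = 0.00297 with LPS, and log2 change -0.86 ± 0.22, adjusted p = 0.00562 for TNFKO LPS against LPS). In lymph node Hk2 was 19.3 to 32.9 in LPS mice, against 12.99 to 19.2 in PBS mice (log2 change 0.65 ± 0.21, adjusted p = 0.0351), and in small intestine and lung it was called higher with overlapping groups (0.83 and 0.63). Hk2 in white fat lost its call in TNFKO LPS against LPS mice without mouse 5, 7, 8, 10, 11 or 12 (adjusted p up to 0.135). Hk2 in lymph node lost its call in LPS against PBS mice without mouse 1, 3, 4, 5, 7 or 8 (adjusted p up to 0.111). Hk2 in lymph node lost its call in LPS against PBS mice without the lymph node library that stood apart (log2 change 0.63, adjusted p = 0.0617). Hk2 in small intestine lost its call in LPS against PBS mice without mouse 1, 7 or 8, or with the 2 groups fitted alone (adjusted p up to 0.121). Hk2 in lung lost its call in LPS against PBS mice without mouse 1, 5, 7 or 8 (adjusted p up to 0.117).

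In muscle, where Hk2 was highest in PBS mice, its signal was 159, 204, 172 and 178 in TNFKO LPS mice and 248, 214, 584 and 336 in LPS mice. PBS mice had 468, 392, 304 and 411. LPS and PBS mice overlapped (adjusted p = 0.369), and TNFKO LPS mice lay below both other groups (log2 change -0.84 ± 0.18, adjusted p = 0.00367). In heart it was 153, 136, 156 and 154 in TNFKO LPS mice, 179.9, 157, 263 and 219 in LPS mice and 266, 258, 270.3 and 227 in PBS mice, with TNFKO LPS mice below both other groups (log2 change -0.43 ± 0.12, adjusted p = 0.0285) and LPS mice lower than PBS mice with overlap (log2 change -0.34 ± 0.12, adjusted p = 0.0365). LPS mouse 6 was the lowest LPS mouse for Hk2 in 11 of 15 tissues. Hk1, the constitutive hexokinase, was lower with LPS in kidney, at 29.8 to 48.3 in TNFKO LPS mice, 17.5 to 28.7 in LPS mice and 31.3 to 43.3 in PBS mice (log2 change -0.73 ± 0.17, adjusted p = 0.00137), and in heart, at 31.6 to 39.9 in LPS mice, against 46.7 to 63.7 in PBS mice (log2 change -0.51 ± 0.15, adjusted p = 0.0154). In kidney Hk1 was higher in TNFKO LPS than in LPS mice (log2 change 0.67 ± 0.17, adjusted p = 0.00603). Hk2 in muscle had a log2 change of -0.55 in TNFKO LPS against LPS mice without mouse 7. Hk2 in heart lost its call in TNFKO LPS against LPS mice without mouse 7, 8, 9, 10 or 12, or with the 2 groups fitted alone (adjusted p up to 0.146). Hk2 in heart lost its call in LPS against PBS mice without mouse 1, 2, 3, 5 or 6, with median-of-ratios scaling, or by edgeR (adjusted p up to 0.156). Hk1 in heart lost its call in LPS against PBS mice without mouse 1 or 7 (adjusted p up to 0.0737).

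Hk3, the hexokinase of myeloid cells, was called in opposite directions in spleen and bone marrow. In spleen its signal was 27.3, 34.1, 34.4 and 29.3 in TNFKO LPS mice, 36.4, 33.01, 20.4 and 25.2 in LPS mice and 10.4, 10.05, 5.37 and 10.5 in PBS mice, with LPS mice above PBS mice (log2 change 1.57 ± 0.26, adjusted p = 3.5e-05). In bone marrow it was 30.03, 35.2, 25.7 and 45.4 in TNFKO LPS mice, 28.1, 23.4, 19.4 and 22.4 in LPS mice and 36.8, 37.7, 43.8 and 45.4 in PBS mice, with LPS mice below PBS mice (log2 change -0.79 ± 0.16, adjusted p = 4.9e-04). Neutrophil markers (8 genes, none at 0) summed to 1861 to 2413 in TNFKO LPS mice, 851 to 1974 in LPS mice and 447 to 563 in PBS mice in spleen. In bone marrow the neutrophil sums were 9436 to 14591 in TNFKO LPS mice, 10628 to 13105 in LPS mice and 14912 to 16104 in PBS mice. In LPS against PBS mice they moved with Hk3 in both tissues, and their part in the result was not tested. In bone marrow all neutrophil sums of TNFKO LPS mice lay below those of PBS mice, while Hk3 of these groups overlapped.

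Among genes that control phosphofructokinase, Pfkfb3, the inducible kinase that makes the activator fructose 2,6-bisphosphate, was higher with LPS in 12 of 15 tissues, not called in white fat and brain, and lower in brown fat. Its relative Pfkfb1, the liver and muscle enzyme, was lower in 4. In TNFKO LPS against LPS mice Pfkfb3 was lower in kidney, muscle, skin and spleen and higher in brown fat.

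Pfkfb3 in muscle had a signal of 223, 222, 160.1 and 238 in TNFKO LPS mice and 535, 249.8, 377 and 317 in LPS mice. PBS mice had 66.5, 64.2, 45.2 and 38.5. It rose 6.90-fold on the means with LPS (log2 change 2.74 ± 0.18, adjusted p = 7.6e-14), and TNFKO LPS mice lay between the groups, below LPS mice (log2 change -0.77 ± 0.18, adjusted p = 0.00799) and above PBS mice. In lung it was 172, 169, 135 and 165 in TNFKO LPS mice and 193, 101, 256 and 225 in LPS mice. PBS mice had 59.3, 57.5, 62.3 and 39.96. LPS mice lay above PBS mice (log2 change 1.74 ± 0.19, adjusted p = 6.6e-08), TNFKO LPS mice were within the range of LPS mice, and LPS mouse 6 was the lowest of all LPS-treated mice. In skin the signal was 51.4, 58.4, 50.98 and 62.1 in TNFKO LPS mice, 116, 67.4, 125 and 97.2 in LPS mice and 35.4, 26.4, 31.4 and 27.2 in PBS mice, with the groups in 3 separate ranges (log2 change 1.69 ± 0.17, adjusted p = 3.7e-07 with LPS, and log2 change -0.82 ± 0.17, adjusted p = 0.0109 for TNFKO LPS against LPS). In spleen it was 83.97, 55.3, 58.03 and 65.2 in TNFKO LPS mice, 90.6, 108, 115 and 128 in LPS mice and 65.1, 31.8, 40.8 and 46.3 in PBS mice, higher with LPS (log2 change 1.28 ± 0.18, adjusted p = 2.1e-06) and lower in TNFKO LPS than in LPS mice without overlap (log2 change -0.75 ± 0.18, adjusted p = 0.0117). Pfkfb3 in muscle lost its call in TNFKO LPS against LPS mice without mouse 5 or 11 (adjusted p up to 0.0738). Pfkfb3 in skin lost its call in TNFKO LPS against LPS mice without mouse 7 (adjusted p = 0.055). Pfkfb3 in spleen lost its call in TNFKO LPS against LPS mice without mouse 8 or 11 (adjusted p up to 0.0542).

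Kidney had a Pfkfb3 signal of 43.6, 37.7, 32.7 and 46.1 in TNFKO LPS mice and 78.05, 59.6, 106 and 73.9 in LPS mice. PBS mice had 30.01, 36.7, 24.8 and 25.6. LPS mice lay above all others (log2 change 1.39 ± 0.17, adjusted p = 1.6e-07), and TNFKO LPS and PBS mice overlapped (log2 change -0.95 ± 0.17, adjusted p = 1.5e-04 for TNFKO LPS against LPS). In heart the signal was 83.9, 76.9, 67.9 and 93.3 in TNFKO LPS mice, 70.99, 36.5, 117 and 97.7 in LPS mice and 26.01, 28.5, 22.97 and 32.3 in PBS mice, and both LPS-treated groups lay above PBS mice (log2 change 1.41 ± 0.22, adjusted p = 1.5e-05). Thymus had 61.00, 41.2, 86.2 and 97.02 in TNFKO LPS mice, 91.7, 71.3, 93.97 and 105 in LPS mice and 38.6, 34.2, 32.8 and 30.2 in PBS mice, with LPS above PBS mice (log2 change 1.38 ± 0.17, adjusted p = 7.9e-09). Lymph node (115 to 150.3 in LPS mice, against 59.8 to 71.4 in PBS mice) and bone marrow (43.5 to 59.5 in LPS mice, against 23.5 to 33.2 in PBS mice) were higher without overlap as well, by 0.98 and 0.79 on the log2 scale. Liver, small intestine and colon were called higher with overlapping groups, by 0.94, 0.66 and 0.85. In liver the overlap came from LPS mouse 6, whose signal was the lowest of its group at 33.2. Pfkfb3 in liver lost its call in LPS against PBS mice without mouse 8 (adjusted p = 0.0508). Pfkfb3 in colon lost its call in LPS against PBS mice without mouse 2, 4, 7 or 8 (adjusted p up to 0.127).

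Brown fat ran against the other tissues. Its Pfkfb3 signal was 283, 316, 296 and 319.5 in TNFKO LPS mice, 237, 200.46, 229 and 194 in LPS mice and 339, 399, 428 and 403 in PBS mice, with the groups in 3 separate ranges. LPS mice were lowest (log2 change -0.86 ± 0.11, adjusted p = 5.4e-06), and TNFKO LPS mice lay above them (log2 change 0.50 ± 0.11, adjusted p = 0.0134) and below PBS mice. LPS mouse 6 was the lowest LPS mouse for Pfkfb3 in 12 of 15 tissues. Pfkfb3 in brown fat lost its call in TNFKO LPS against LPS mice without mouse 8 or 12 (adjusted p up to 0.0632).

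Pfkfb1 in liver had a signal of 39.5, 35.3, 38.4 and 36.9 in TNFKO LPS mice and 5.45, 10.6, 2.50 and 3.96 in LPS mice. PBS mice had 37.99, 38.1, 27.9 and 35.3. It fell 6.19-fold on the means with LPS (log2 change -2.57 ± 0.30, adjusted p = 6.1e-08). TNFKO LPS livers were 6.67-fold above LPS livers without overlap (log2 change 2.68 ± 0.30, adjusted p = 2.3e-07), the largest such change of the list, and overlapped with PBS livers. LPS livers held few counts of Pfkfb1, with 1 count worth a signal of 1.25 to 1.36 there. Brown fat had 17.3 to 30.8 in TNFKO LPS mice, 8.88 to 15.5 in LPS mice and 30.9 to 42.9 in PBS mice, lower with LPS (log2 change -1.50 ± 0.26, adjusted p = 1.8e-04), and white fat 3.47 to 18.6 in TNFKO LPS mice, 5.17 to 12.9 in LPS mice and 13.997 to 30.3 in PBS mice, also lower (log2 change -1.19 ± 0.40, adjusted p = 0.049). In heart it was low, at 2.45 to 4.77 in TNFKO LPS mice, 0 to 8.72 in LPS mice and 3.59 to 8.66 in PBS mice, and called lower (-1.31) with overlapping groups. Pfkfb1 in white fat lost its call in LPS against PBS mice without mouse 1, 2, 3, 5, 7, 8 or 11, with a pseudocount of 0.25, or without the filter (adjusted p up to 0.16). Pfkfb1 in heart lost its call in LPS against PBS mice without mouse 2, 3, 4, 5, 6, 7, 9, 11 or 12, with a pseudocount of 0.25, without the filter, with median-of-ratios scaling, with the 2 groups fitted alone, or by edgeR (adjusted p up to 0.216).

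**Figure D4:**
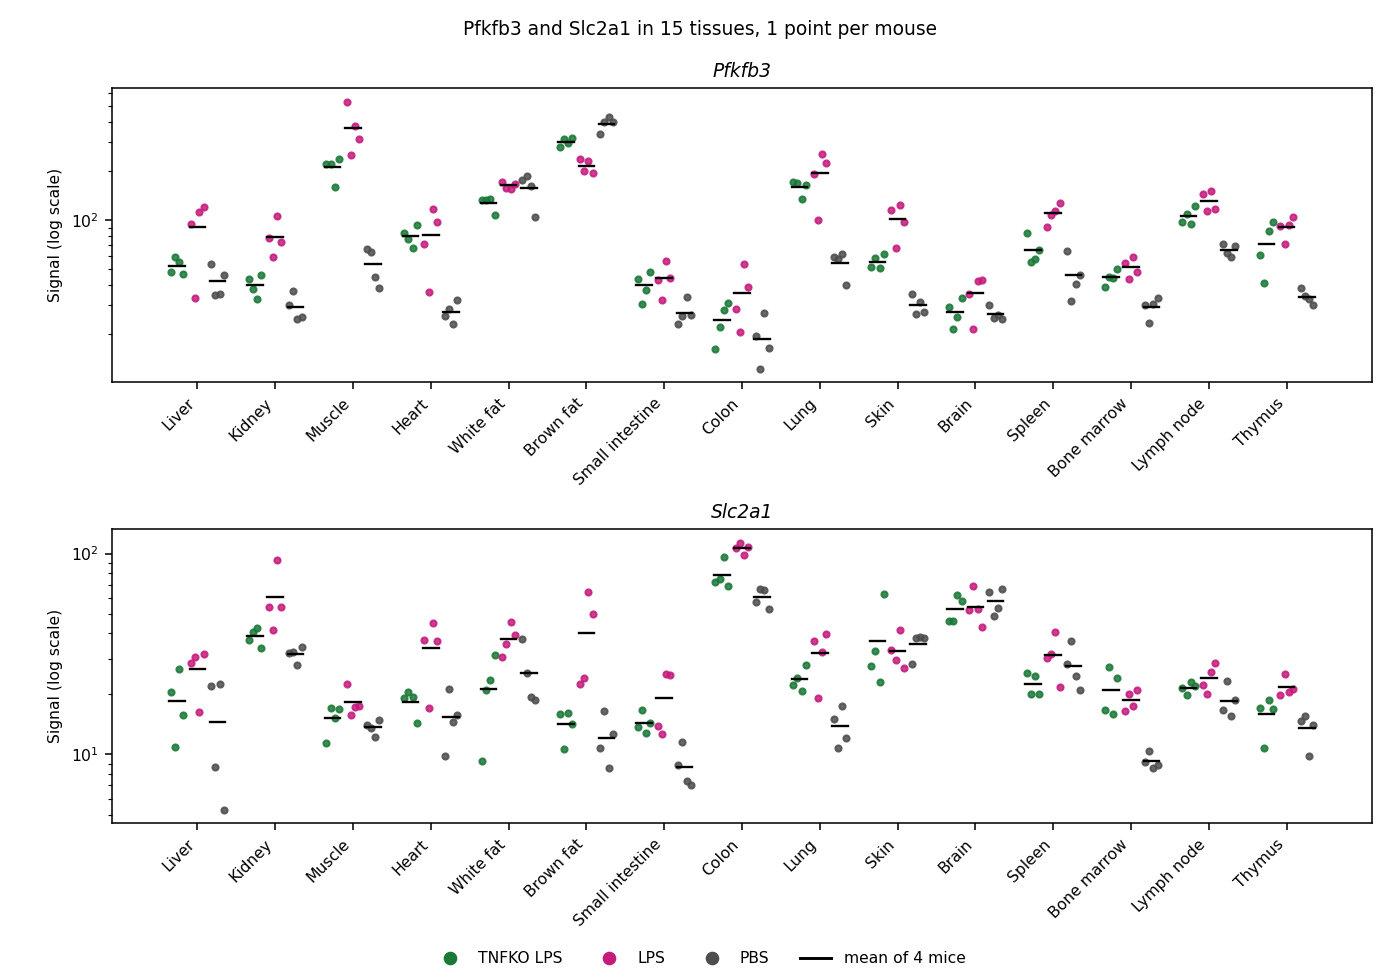
Signal (log scale) of Pfkfb3 (top) and Slc2a1 (bottom) in 15 tissues, 1 point per mouse and a bar at the mean of 4, with TNFKO LPS mice in green left of LPS mice in magenta and PBS mice in grey. Pfkfb3 is higher in LPS than in PBS mice in 12 tissues and lower in brown fat, and Slc2a1 is higher in 9.

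Of the phosphofructokinase subunit genes, Pfkm and Pfkl were each lower with LPS in 4 tissues and higher in none, and Pfkp was higher in 4 and lower in 2. Pfkm, the muscle subunit, had a signal of 839, 974, 787 and 916 in TNFKO LPS mice, 1074, 1038, 1452 and 1239 in LPS mice and 1498, 1712, 1471 and 1487 in PBS mice in muscle. The groups stood in order, with LPS mice below PBS mice (log2 change -0.37 ± 0.11, adjusted p = 0.0171) and TNFKO LPS mice below LPS mice (log2 change -0.44 ± 0.11, adjusted p = 0.0109). In heart Pfkm was 228, 243, 241 and 219 in TNFKO LPS mice, 244, 224, 259 and 256 in LPS mice and 358, 379, 357 and 317 in PBS mice, lower in every LPS-treated mouse than in every PBS mouse (log2 change -0.52 ± 0.09, adjusted p = 3.4e-05). Kidney (-0.87) and bone marrow (-0.63) were also lower. Pfkl, the liver-type subunit, was lower in brown fat, at 136 to 145 in TNFKO LPS mice, 108 to 172 in LPS mice and 228 to 315 in PBS mice (log2 change -0.92 ± 0.14, adjusted p = 5.0e-05), and in colon, at 54.5 to 63.03 in TNFKO LPS mice, 44.7 to 56.2 in LPS mice and 74.6 to 79.3 in PBS mice (log2 change -0.61 ± 0.13, adjusted p = 0.00131), and was also called lower in heart and skin with overlap. In bone marrow Pfkl was higher in TNFKO LPS than in LPS mice, at 21.1 to 30.8 in TNFKO LPS mice, against 14.5 to 18.6 in LPS mice (log2 change 0.54 ± 0.16, adjusted p = 0.0459). Pfkp, the platelet-type subunit, was higher with LPS in brown fat, where Pfkl fell and Pfkm was not called, at 109.9 to 133 in TNFKO LPS mice, 84.4 to 113 in LPS mice and 56.4 to 72.9 in PBS mice (log2 change 0.65 ± 0.14, adjusted p = 0.00219). It was also higher in heart, spleen and bone marrow (0.52, 0.60 and 0.44) and lower in small intestine and skin, in skin at 44.3 to 57.2 in LPS mice, against 61.7 to 72.9 in PBS mice (log2 change -0.40 ± 0.13, adjusted p = 0.0388). Pfkm in muscle lost its call in LPS against PBS mice without mouse 2, 5 or 6 (adjusted p up to 0.0771). Pfkm in muscle lost its call in TNFKO LPS against LPS mice without mouse 7 or 11 (adjusted p up to 0.0725). Pfkm in bone marrow lost its call in LPS against PBS mice without mouse 3 or 8 (adjusted p up to 0.0848). Pfkl in bone marrow lost its call in TNFKO LPS against LPS mice without mouse 2, 3, 4, 5, 7, 8, 10, 11 or 12, without the filter, or with the 2 groups fitted alone (adjusted p up to 0.15). Pfkp in heart lost its call in LPS against PBS mice without mouse 1, 5 or 7 (adjusted p up to 0.0697). Pfkp in spleen lost its call in LPS against PBS mice without mouse 1, 4, 5 or 8, or with the 2 groups fitted alone (adjusted p up to 0.191). Pfkp in bone marrow lost its call in LPS against PBS mice without mouse 1, 4, 7 or 8 (adjusted p up to 0.0804). Pfkp in skin lost its call in LPS against PBS mice without mouse 1, 2, 3, 4, 5, 6 or 8, with the 2 groups fitted alone, or by edgeR (adjusted p up to 0.112).

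Several genes of the lower steps of glycolysis rose with LPS in spleen, lung and bone marrow, and several fell in kidney. In spleen Tpi1, Gapdh, Pgk1, Eno1 and Pkm were called higher. Pkm, the pyruvate kinase of most tissues, had a spleen signal of 577, 533, 551 and 477 in TNFKO LPS mice, 571, 418, 661 and 518 in LPS mice and 238, 255, 263 and 234 in PBS mice, and both LPS-treated groups lay above PBS mice (log2 change 1.11 ± 0.11, adjusted p = 2.3e-09). Gapdh, glyceraldehyde 3-phosphate dehydrogenase, had 682, 657, 641 and 686 in TNFKO LPS mice, 626, 572, 586 and 555 in LPS mice and 322, 365, 444 and 371 in PBS mice (log2 change 0.65 ± 0.09, adjusted p = 4.5e-06). Pgk1, phosphoglycerate kinase, had 211, 226, 209.5 and 214 in TNFKO LPS mice, 196, 205, 185 and 164 in LPS mice and 133, 107, 149 and 109 in PBS mice (log2 change 0.60 ± 0.12, adjusted p = 4.0e-04). For each the LPS and PBS ranges were apart. Tpi1, triosephosphate isomerase, and Eno1, the widespread enolase, were higher by 0.60 and 0.40. Gpi1, glucose 6-phosphate isomerase, was not called with LPS, and was higher in TNFKO LPS than in LPS mice, at 125 to 150.5 in TNFKO LPS mice, against 87.9 to 124 in LPS mice (log2 change 0.46 ± 0.13, adjusted p = 0.0421). Beside the neutrophil sums given above, T cell markers (5 genes, none at 0) summed to 144 to 169 in TNFKO LPS mice, 108 to 159.9 in LPS mice and 256 to 345 in PBS mice in spleen, and the part of either list was not tested. Eno1 in spleen lost its call in LPS against PBS mice without mouse 1, 2 or 5 (adjusted p up to 0.0756). Gpi1 in spleen lost its call in TNFKO LPS against LPS mice without mouse 3, 6, 7, 8, 9, 11 or 12, with median-of-ratios scaling, with the 2 groups fitted alone, or by edgeR (adjusted p up to 0.144).

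In bone marrow Gapdh had a signal of 659, 688, 691 and 844 in TNFKO LPS mice and 557, 672, 578 and 567 in LPS mice. PBS mice had 449, 368, 439.8 and 453. Every LPS-treated mouse lay above every PBS mouse (log2 change 0.47 ± 0.09, adjusted p = 3.2e-04). Pgk1 was 230.4 to 276 in LPS mice, against 159 to 176 in PBS mice (log2 change 0.61 ± 0.09, adjusted p = 8.2e-06), and Pgam1, the widespread phosphoglycerate mutase, was 75.6 to 98.7 in LPS mice, against 44.8 to 60.3 in PBS mice (log2 change 0.79 ± 0.12, adjusted p = 2.3e-05). Tpi1 and Eno1 were called higher with overlapping groups and Pkm without, by 0.35, 0.37 and 0.61. Aldoa, the widespread aldolase, was not called with LPS (log2 change 0.19 ± 0.08, adjusted p = 0.102) and was higher in TNFKO LPS than in LPS mice, at 297 to 399 in TNFKO LPS mice, against 268 to 281 in LPS mice (log2 change 0.33 ± 0.08, adjusted p = 0.0201). Erythroid markers (6 genes, none at 0), which dominate this tissue, summed to 104050.0 to 117164 in TNFKO LPS mice, 125647 to 142958 in LPS mice and 176421 to 193959 in PBS mice there. Their fall runs beside these rises, and its part was not tested. Tpi1 in bone marrow lost its call in LPS against PBS mice without mouse 1, 4, 7 or 8 (adjusted p up to 0.0991). Eno1 in bone marrow lost its call in LPS against PBS mice without mouse 1, 2 or 5 (adjusted p up to 0.0645). Aldoa in bone marrow lost its call in TNFKO LPS against LPS mice without mouse 5, 8, 10 or 12, or with the 2 groups fitted alone (adjusted p up to 0.071).

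In lung 5 lower glycolysis genes (Gapdh, Pgk1, Pgam1, Eno1 and Pkm) and Gpi1, of an upper step, were higher with LPS. Pkm had a signal of 289, 295, 332 and 328 in TNFKO LPS mice, 335, 279.7, 354 and 314 in LPS mice and 231, 215, 216 and 185 in PBS mice, with every LPS-treated mouse above every PBS mouse (log2 change 0.59 ± 0.10, adjusted p = 7.1e-05). Eno1 was 66.3 to 87.9 in TNFKO LPS mice, 61.5 to 81.1 in LPS mice and 29.1 to 64.4 in PBS mice, and its LPS and PBS mice overlapped (log2 change 0.54 ± 0.18, adjusted p = 0.0268). The other 4 rose by 0.42 (Gapdh) to 0.52 (Pgam1) on the log2 scale. Neutrophil markers in lung summed to 4076 to 6497 in TNFKO LPS mice, 4110.3 to 4727 in LPS mice and 359 to 417 in PBS mice, and their part in the result was not tested. In lymph node Pkm was higher with LPS as well, at 221 to 277 in LPS mice, against 172 to 192 in PBS mice (log2 change 0.51 ± 0.12, adjusted p = 0.00412). Eno1 in lung lost its call in LPS against PBS mice without mouse 4, 5 or 8, or with the 2 groups fitted alone (adjusted p up to 0.162).

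In kidney, several glycolysis genes were lower with LPS, and several were higher in TNFKO LPS than in LPS mice. Tpi1 had a signal of 309, 282, 310.5 and 317 in TNFKO LPS mice and 193, 206, 151 and 146 in LPS mice. PBS mice had 341, 353, 355 and 321. LPS mice lay below all others (log2 change -0.99 ± 0.10, adjusted p = 1.2e-08), and TNFKO LPS mice lay between the groups and close to PBS mice (log2 change 0.82 ± 0.10, adjusted p = 1.9e-06 for TNFKO LPS against LPS). Pgam2, the muscle phosphoglycerate mutase, was 42.2, 49.3, 49.7 and 61.2 in TNFKO LPS mice and 33.4, 38.4, 28.6 and 30.5 in LPS mice. PBS mice had 91.4, 92.1, 83.2 and 83.3. Its groups were in 3 separate ranges, with TNFKO LPS in the middle (log2 change -1.40 ± 0.13, adjusted p = 3.5e-09 with LPS, and log2 change 0.61 ± 0.13, adjusted p = 0.00152 for TNFKO LPS against LPS). Gpi1 was 124 to 134 in TNFKO LPS mice, 75.7 to 101 in LPS mice and 131 to 164 in PBS mice, with changes of -0.77 with LPS and 0.59 for TNFKO LPS against LPS. Pgam1 was 84.5 to 105 in TNFKO LPS mice, 65.6 to 76.9 in LPS mice and 133 to 152 in PBS mice, with changes of -0.998 and 0.41. Aldoa moved least of those called in both comparisons, at 517 to 569.6 in TNFKO LPS mice, 410.1 to 459.9 in LPS mice and 506 to 567 in PBS mice (-0.32 and 0.32). Pgk1 fell by 0.54 with LPS and was not called between TNFKO LPS and LPS mice (adjusted p = 0.0926). Gapdh, at 832 to 895 in TNFKO LPS mice, 858 to 992 in LPS mice and 964 to 1029 in PBS mice, was not called in either.

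**Figure D5:**
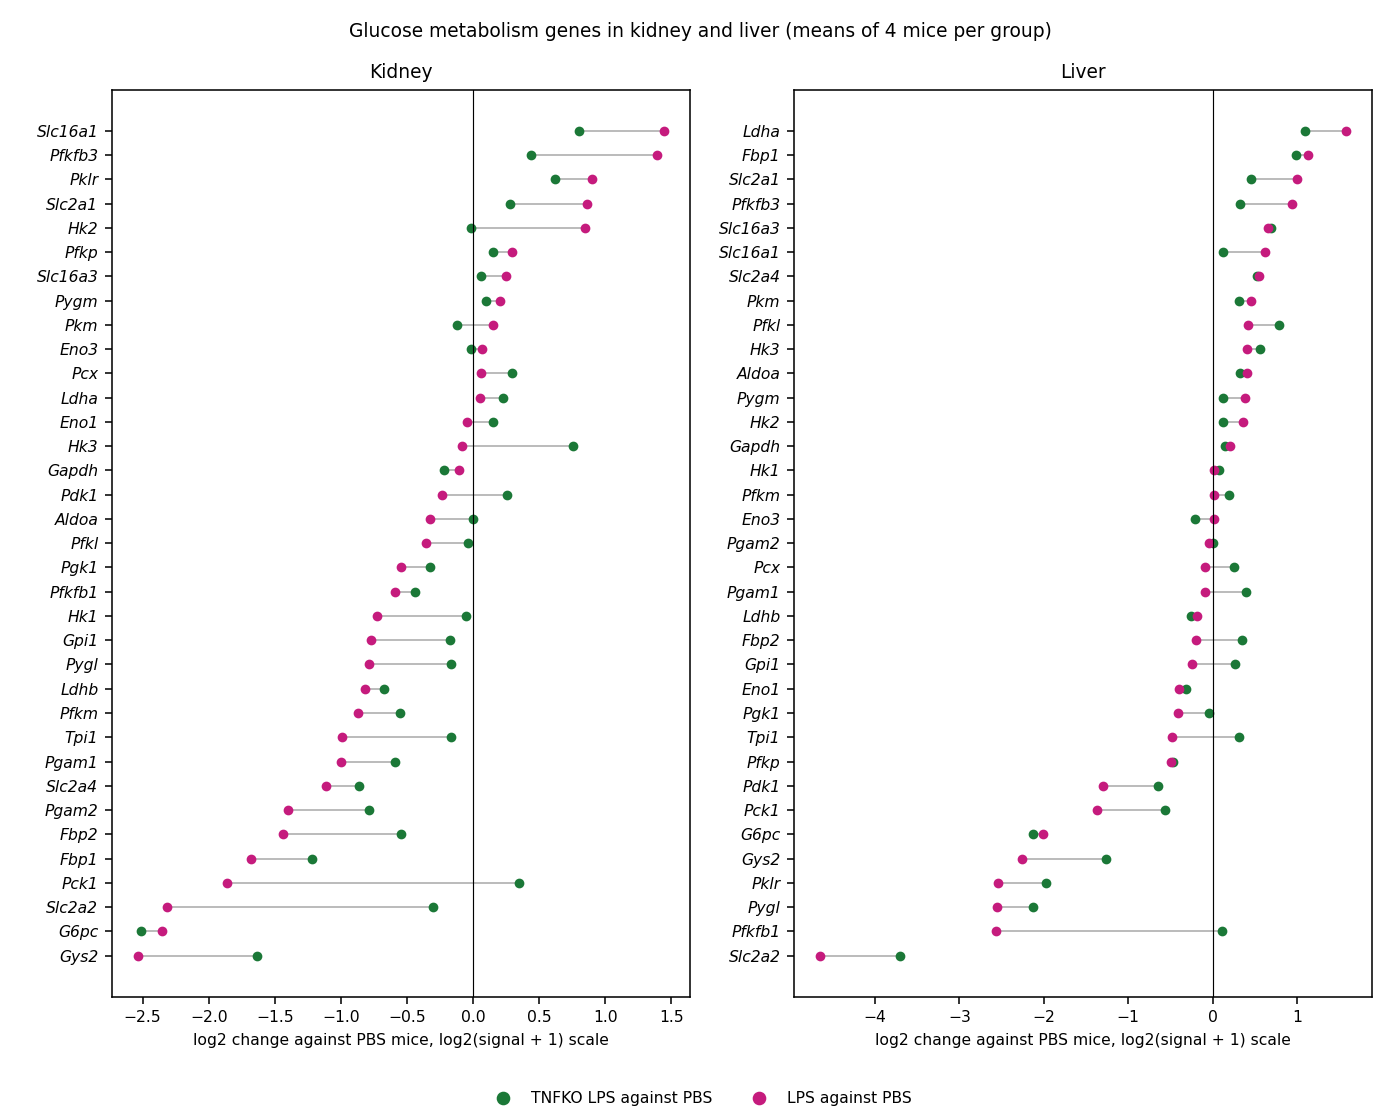
Log2 change against PBS mice (x axis) of each tested gene (rows) in kidney and liver. TNFKO LPS mice are in green and LPS mice in magenta, joined by a grey line for each gene, and calls are not marked. At an adjusted p under 0.05, 17 genes were lower with LPS in kidney, and in liver 10 were lower and 7 higher. In kidney 11 were higher in TNFKO LPS than in LPS mice, a comparison not drawn here.

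In small intestine and muscle, several genes were lower in TNFKO LPS than in LPS mice instead. Pgk1 in small intestine had a signal of 213, 221, 237 and 217 in TNFKO LPS mice and 359, 401, 301 and 367 in LPS mice. PBS mice had 230.3, 285, 200.04 and 247. LPS mice lay above both other groups (log2 change 0.57 ± 0.11, adjusted p = 6.0e-04 with LPS, and log2 change -0.68 ± 0.11, adjusted p = 5.6e-04 for TNFKO LPS against LPS). Gapdh there was 451, 384, 436 and 469 in TNFKO LPS mice, 657, 613, 669 and 717 in LPS mice and 623, 665, 499 and 582 in PBS mice, with TNFKO LPS mice below both other groups (log2 change -0.61 ± 0.10, adjusted p = 6.7e-04), and Pkm was 199 to 293 in TNFKO LPS mice, 318 to 410.1 in LPS mice and 362 to 424 in PBS mice, with TNFKO LPS mice again lowest (log2 change -0.66 ± 0.12, adjusted p = 0.00139). Tpi1 ran apart from these, at 162 to 233 in TNFKO LPS mice, 164 to 235 in LPS mice and 271 to 326 in PBS mice, lower in both LPS-treated groups than in PBS mice (log2 change -0.65 ± 0.13, adjusted p = 5.7e-04). In colon Pgk1 had a signal of 378, 369, 428 and 347 in TNFKO LPS mice, 397, 378, 478 and 423 in LPS mice and 214, 212, 216 and 214 in PBS mice, with every LPS-treated mouse above the narrow PBS range (log2 change 0.96 ± 0.09, adjusted p = 3.7e-09).

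Pgam2 in muscle had a signal of 1070.1, 1399, 1070.2 and 983 in TNFKO LPS mice and 1849, 1594, 2504 and 2275 in LPS mice. PBS mice had 4348, 4711, 3208 and 3709. The groups were in 3 separate ranges, falling with LPS (log2 change -0.96 ± 0.13, adjusted p = 1.1e-06) and lower again in TNFKO LPS than in LPS mice (log2 change -0.85 ± 0.13, adjusted p = 5.9e-05). In heart it was 497 to 597 in TNFKO LPS mice, 493 to 599 in LPS mice and 815 to 884 in PBS mice and lower in both LPS-treated groups (LPS against PBS log2 change -0.63 ± 0.08, adjusted p = 3.4e-07). In skin it was 52.7 to 117 in TNFKO LPS mice, 85.7 to 224 in LPS mice and 227 to 294 in PBS mice, lower with LPS (log2 change -0.83 ± 0.24, adjusted p = 0.018), and skeletal muscle fibre markers (6 genes, none at 0) summed to 6662 to 14139 in TNFKO LPS mice, 11185 to 17112 in LPS mice and 13923 to 17360.0 in PBS mice in skin. In brown fat Pgam2 had 33.4, 35.03, 30.1 and 16.3 in TNFKO LPS mice, 39.9, 44.4, 87.95 and 90.5 in LPS mice and 28.8, 38.7, 31.9 and 54.7 in PBS mice, with TNFKO LPS below LPS mice (log2 change -1.13 ± 0.28, adjusted p = 0.0319) and LPS mice 7 and 8 highest. Muscle fibre markers in brown fat summed to 981 to 5164 in TNFKO LPS mice, 1833 to 8514 in LPS mice and 966 to 2688 in PBS mice, with the same LPS mice highest. The part of these markers was not tested. In muscle Gapdh was 3718 to 4861 in LPS mice, against 4938 to 6056 in PBS mice, a smaller fall (log2 change -0.33 ± 0.11, adjusted p = 0.0366). Pgam2 in skin lost its call in LPS against PBS mice without mouse 1, 4 or 6 (adjusted p up to 0.0642). Pgam2 in brown fat lost its call in TNFKO LPS against LPS mice without mouse 7, 8, 11 or 12 (adjusted p up to 0.151). Its call in TNFKO LPS against LPS mice was lost without the brown fat libraries that stood apart (log2 change -0.59, adjusted p = 0.429). Gapdh in muscle lost its call in LPS against PBS mice without mouse 1, 2, 4, 5 or 6 (adjusted p up to 0.143).

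Eno1 showed the largest fall of lower glycolysis in brown fat, where it had 234, 295, 274 and 235 in TNFKO LPS mice and 293, 274, 294 and 272 in LPS mice. PBS mice had 749.6, 1103, 706 and 821. Both LPS-treated groups lay far below PBS mice (log2 change -1.55 ± 0.13, adjusted p = 1.3e-08), and the genotypes overlapped. A near copy, Eno1b, was listed at a mean signal of 6.60, and how reads were split between them is not stated in the labels. Eno3, the muscle enolase, was lower with LPS in colon, at 56.3 to 73.98 in TNFKO LPS mice, 43.5 to 55.02 in LPS mice and 73.3 to 107 in PBS mice (log2 change -0.81 ± 0.14, adjusted p = 1.2e-04), with changes of -0.33 in heart and -0.57 in lymph node. Tpi1 was lower in white fat, at 97.2 to 121 in TNFKO LPS mice, 98.1 to 126 in LPS mice and 136 to 224 in PBS mice (log2 change -0.63 ± 0.15, adjusted p = 0.00471). In liver Tpi1 and Gpi1 were not called with LPS and were higher in TNFKO LPS than in LPS mice with overlap, by 0.80 and 0.50. LPS mouse 6 was the lowest LPS mouse for Pkm in 11 of 15 tissues. Eno3 in heart lost its call in LPS against PBS mice without mouse 1 or 2 (adjusted p up to 0.0791). Tpi1 in liver lost its call in TNFKO LPS against LPS mice without mouse 9 (adjusted p = 0.0518). Tpi1 in liver had a log2 change of 0.46 in TNFKO LPS against LPS mice without mouse 7. Gpi1 in liver lost its call in TNFKO LPS against LPS mice without mouse 7, 8, 9, 10 or 11 (adjusted p up to 0.127).

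In liver Ldha rose and Pklr fell with LPS. Ldha, the lactate dehydrogenase subunit that favours lactate formation, had a liver signal of 3282, 3045, 3233 and 2791 in TNFKO LPS mice and 3724, 4842, 3749 and 5130.1 in LPS mice. PBS mice had 1389.7, 1394, 1536 and 1480.2. The groups were in 3 separate ranges. LPS mice were 3.01-fold above PBS mice (log2 change 1.57 ± 0.10, adjusted p = 5.4e-13), and TNFKO LPS mice were lower than LPS mice (log2 change -0.49 ± 0.10, adjusted p = 0.00176). Pklr, the liver pyruvate kinase, was low, at 5.99, 2.72, 2.65 and 6.70 in TNFKO LPS mice and 4.09, 0, 3.75 and 5.27 in LPS mice. PBS mice had 13.997, 17.3, 20.4 and 28.2. Every LPS-treated mouse lay below every PBS mouse, with 1 LPS mouse at 0 (log2 change -2.54 ± 0.50, adjusted p = 2.2e-04). Pkm rose in the same livers by 0.45 (adjusted p = 0.00374). Pdk1, which encodes a kinase that shuts off pyruvate dehydrogenase, was 6.25 to 39.5 in LPS mice, against 39.9 to 55.99 in PBS mice in liver (log2 change -1.30 ± 0.32, adjusted p = 0.00261) and 36.8 to 48.9 in LPS mice, against 65.9 to 88.03 in PBS mice in brown fat (log2 change -0.68 ± 0.18, adjusted p = 0.00907), lower with LPS in both. Pklr in liver had a log2 change of -1.93 in LPS against PBS mice without mouse 6. Pdk1 in liver had a log2 change of -0.82 in LPS against PBS mice without mouse 7.

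Ldha was also higher with LPS in spleen, at 628 to 791 in TNFKO LPS mice, 584 to 698 in LPS mice and 363 to 407 in PBS mice (log2 change 0.70 ± 0.09, adjusted p = 1.0e-06), and in bone marrow, at 558 to 695 in TNFKO LPS mice, 572 to 599 in LPS mice and 357 to 403 in PBS mice (log2 change 0.63 ± 0.08, adjusted p = 8.2e-07), without overlap in either. In lung it was not called (log2 change 0.14 ± 0.11, adjusted p = 0.385). Ldhb, the subunit that favours pyruvate formation, was lower with LPS in 8 tissues and higher in none. In lung it had a signal of 140.1, 136, 147 and 135 in TNFKO LPS mice, 109, 123, 121 and 119 in LPS mice and 219, 202, 218 and 195 in PBS mice, with every LPS-treated mouse below every PBS mouse (log2 change -0.82 ± 0.10, adjusted p = 5.0e-07). In lymph node it was 41.2 to 49.9 in TNFKO LPS mice, 35.5 to 46.9 in LPS mice and 68.8 to 138 in PBS mice (log2 change -1.20 ± 0.17, adjusted p = 2.7e-05), beside the fall in tubule markers given above. In thymus it was 268 to 336 in TNFKO LPS mice, 223 to 316 in LPS mice and 406 to 465 in PBS mice (log2 change -0.68 ± 0.10, adjusted p = 4.0e-07), where thymocyte markers (5 genes, none at 0) summed to 1809 to 2439 in TNFKO LPS mice, 957 to 1619.8 in LPS mice and 2671 to 2820.1 in PBS mice. Brown fat had 504 to 691 in TNFKO LPS mice, 524 to 671 in LPS mice and 933 to 1194 in PBS mice (log2 change -0.85 ± 0.12, adjusted p = 2.2e-05), colon 56.2 to 79.1 in LPS mice, against 90.7 to 122 in PBS mice (log2 change -0.57 ± 0.15, adjusted p = 0.00688) and muscle 281 to 341 in LPS mice, against 364 to 465 in PBS mice (log2 change -0.40 ± 0.11, adjusted p = 0.0136). The log2 change was -0.82 in kidney and -0.34 in heart. No tissue was called for Ldhb between TNFKO LPS and LPS mice. Ldhb in muscle lost its call in LPS against PBS mice without mouse 1, 2 or 6 (adjusted p up to 0.0704).

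Slc16a1 encodes MCT1, a carrier for lactate and ketone bodies, and Slc16a3 encodes MCT4, the lactate exporter of glycolytic cells. Slc16a1 in kidney had a signal of 137, 116, 153 and 121 in TNFKO LPS mice and 193, 154, 222 and 267 in LPS mice. PBS mice had 75.4, 74.5, 72.4 and 76.9. PBS mice lay in a narrow range below both LPS-treated groups (log2 change 1.44 ± 0.13, adjusted p = 1.3e-09), and TNFKO LPS mice lay below LPS mice (log2 change -0.64 ± 0.13, adjusted p = 6.8e-04). In bone marrow it was 143, 124, 152 and 134 in TNFKO LPS mice, 87.2, 104, 93.5 and 87.1 in LPS mice and 225, 198, 213 and 188 in PBS mice, with LPS mice lowest (log2 change -1.14 ± 0.09, adjusted p = 8.8e-10) and TNFKO LPS mice between the groups (log2 change 0.57 ± 0.09, adjusted p = 5.0e-04). In white fat it was 161 to 251 in TNFKO LPS mice, 144 to 200.6 in LPS mice and 83.3 to 99.5 in PBS mice, higher in both LPS-treated groups (log2 change 0.82 ± 0.15, adjusted p = 2.6e-04). Heart (155 to 196 in LPS mice, against 234 to 289 in PBS mice, -0.54), thymus (67.6 to 73.6 in LPS mice, against 95.8 to 105 in PBS mice, -0.51) and colon (129 to 187 in LPS mice, against 194 to 204 in PBS mice, -0.43) were lower with LPS. In liver it was higher with LPS and lower in TNFKO LPS than in LPS mice, with overlap (0.62 and -0.49). Slc16a1 in liver lost its call in TNFKO LPS against LPS mice without mouse 5, 7, 8, 9, 10 or 12, or with a pseudocount of 0.25 (adjusted p up to 0.202).

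Slc16a3 in lung had a signal of 19.8, 20.8, 19.98 and 17.9 in TNFKO LPS mice and 16.99, 19.04, 21.6 and 21.96 in LPS mice. PBS mice had 3.34, 5.05, 1.93 and 3.63. The lowest LPS-treated mouse lay above the highest PBS mouse, 5.70-fold on the means for LPS mice (log2 change 2.26 ± 0.25, adjusted p = 6.3e-08), and the genotypes overlapped. The lung neutrophil sums given above moved with it. In spleen it was 2.02, 15.3, 5.90 and 14.6 in TNFKO LPS mice, 13.3, 17.1, 14.1 and 14.4 in LPS mice and 4.44, 6.70, 2.15 and 5.26 in PBS mice, higher in LPS than in PBS mice (log2 change 1.55 ± 0.44, adjusted p = 0.0125), with TNFKO LPS mice spread over both ranges. In muscle Slc16a3 had 55.4, 75.9, 111 and 79.6 in TNFKO LPS mice and 138, 172, 149.6 and 154 in LPS mice. PBS mice had 148, 180.3, 146 and 191. LPS and PBS mice overlapped, and every TNFKO LPS mouse lay below them (log2 change -0.96 ± 0.16, adjusted p = 1.4e-04). In skin it was 7.71, 11.5, 7.62 and 4.35 in TNFKO LPS mice, 22.2, 15.04, 17.7 and 12.96 in LPS mice and 13.6, 14.4, 12.2 and 12.3 in PBS mice, again with TNFKO LPS mice below both other groups (log2 change -1.07 ± 0.25, adjusted p = 0.0242). Heart was called higher and small intestine lower with LPS, with overlapping groups (1.14 and -1.02). Slc16a3 in spleen lost its call in LPS against PBS mice without mouse 3 (adjusted p = 0.0602). Slc16a3 in skin lost its call in TNFKO LPS against LPS mice without mouse 5, 7, 9 or 12, or with the 2 groups fitted alone (adjusted p up to 0.0939). Slc16a3 in heart lost its call in LPS against PBS mice without mouse 1, 3 or 7 (adjusted p up to 0.0913). Slc16a3 in small intestine lost its call in LPS against PBS mice without mouse 1, 2, 4, 5, 7 or 11, or with a pseudocount of 0.25 (adjusted p up to 0.131).

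Gys2 and Pygl fell in liver. Gys2, the liver glycogen synthase, had a signal of 57.5, 42.1, 64.9 and 51.4 in TNFKO LPS mice and 20.4, 35.8, 21.3 and 30.3 in LPS mice. PBS mice had 142, 169.9, 124 and 93.5. The groups were in 3 separate ranges, with LPS mice lowest (log2 change -2.26 ± 0.20, adjusted p = 3.9e-10) and TNFKO LPS mice above them (log2 change 0.996 ± 0.20, adjusted p = 0.00111). In brown fat it was 58.1, 31.8, 76.4 and 54.95 in TNFKO LPS mice and 28.7, 26.6, 8.32 and 12.7 in LPS mice. PBS mice had 64.9, 63.4, 58.8 and 77.2. LPS mice lay below both other groups (log2 change -1.89 ± 0.31, adjusted p = 9.8e-05), and TNFKO LPS mice (log2 change 1.58 ± 0.31, adjusted p = 0.00457) overlapped with PBS mice. Kidney had few counts, at 1.59 to 3.51 in TNFKO LPS mice, 0 to 2.56 in LPS mice and 7.62 to 14.2 in PBS mice with 1 LPS mouse at 0 (log2 change -2.53 ± 0.36, adjusted p = 3.2e-06). Gys2 in brown fat had a log2 change of -1.23 in LPS against PBS mice without the brown fat libraries that stood apart. Gys2 in brown fat lost its call in TNFKO LPS against LPS mice without the brown fat libraries that stood apart (log2 change 0.91, adjusted p = 0.0587).

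Pygl, the liver glycogen phosphorylase, which breaks glycogen down, fell in the same livers. Its signal was 93.4, 84.2, 84.8 and 117 in TNFKO LPS mice, 62.7, 50.4, 78.8 and 96.2 in LPS mice and 426, 446, 414 and 378 in PBS mice, with every LPS-treated mouse below every PBS mouse (log2 change -2.55 ± 0.16, adjusted p = 1.4e-13) and the genotypes overlapping (adjusted p = 0.0985). In lung it rose, at 40.4, 81.5, 59.1 and 68.7 in TNFKO LPS mice, 70.6, 79.1, 64.7 and 51.5 in LPS mice and 32.6, 29.7, 28.9 and 24.2 in PBS mice (log2 change 1.17 ± 0.18, adjusted p = 1.3e-05), where neutrophil markers rose as given above. In bone marrow it was 83.1 to 138 in TNFKO LPS mice, 120.4 to 147 in LPS mice and 161 to 204 in PBS mice (log2 change -0.45 ± 0.12, adjusted p = 0.00968), lower beside the lower neutrophil sums there. White fat had 17.2 to 48.5 in TNFKO LPS mice, 32.3 to 47.5 in LPS mice and 58.3 to 131 in PBS mice (log2 change -1.25 ± 0.26, adjusted p = 0.00163), and in brown fat the change was -0.95. In kidney Pygl changed by -0.79 with LPS and was higher by 0.62 in TNFKO LPS than in LPS mice. Pygm, the muscle phosphorylase, was highest in muscle, where it was not called (log2 change -0.13 ± 0.10, adjusted p = 0.468). In brown fat it had 87.1, 72.2, 36.6 and 33.6 in TNFKO LPS mice, 84.8, 63.4, 160.5 and 162 in LPS mice and 21.6, 42.3, 34.3 and 61.7 in PBS mice, higher with LPS (log2 change 1.52 ± 0.33, adjusted p = 0.00213), with LPS mice 7 and 8 highest as for the muscle fibre markers. In heart the change was -0.29. Pygm in brown fat lost its call in LPS against PBS mice without the brown fat libraries that stood apart (log2 change 0.70, adjusted p = 0.157).

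Other genes of these pathways were counted over all tissues. Of other glycogen genes 11 higher and 60 lower of 295 tests were called in LPS against PBS mice, and in TNFKO LPS against LPS mice 13 higher and 9 lower of 295. Genes of pyruvate entry to mitochondria gave 13 higher and 40 lower of 180 and 6 higher and 6 lower of 180 in these comparisons. Other gluconeogenesis and glucose release genes gave 10 higher and 24 lower of 152 and 12 higher and 2 lower of 152. Monocarboxylate transport gave 7 higher and 15 lower of 75 and 7 higher and 2 lower of 75. The pentose phosphate pathway gave 17 higher and 17 lower of 120 and 5 higher and 9 lower of 120, other hexose transport and trapping 9 higher and 11 lower of 110 and 1 higher and 6 lower of 110, and other glycolysis isoenzymes and PFKFB genes 7 higher and 12 lower of 135 and 3 higher and 2 lower of 135. Regulators gave 82 higher and 53 lower of 349 and 17 higher and 21 lower of 349. With LPS every list but other hexose transport and other isoenzymes was lower more often than the 10.4% of all tests, and the regulators and the pentose phosphate pathway were higher more often than the 9.47% of all tests. In TNFKO LPS against LPS mice the shares of all tests were 3.24% higher and 2.32% lower.

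Gcgr, the glucagon receptor gene, had 13.6, 25.2, 32.5 and 14.5 in LPS mice, against 93.98, 102, 109.6 and 132 in PBS mice (log2 change -2.38 ± 0.22, adjusted p = 9.0e-10). Pdk4, which encodes a fasting-induced kinase of pyruvate dehydrogenase, was among the 3 most changed genes of these lists, and higher with LPS, in heart, kidney, muscle and skin, with the largest change of these tissues in kidney at 1227, 906, 1469 and 1238 in LPS mice, against 163, 152, 149 and 193 in PBS mice (log2 change 2.86 ± 0.14, adjusted p = 1.6e-14). Slc2a5, which encodes the fructose transporter of the tubule, had 10.7, 11.5, 1.47 and 5.54 in LPS mice, against 61.4, 67.96, 41.9 and 47.7 in PBS mice in kidney (log2 change -2.97 ± 0.32, adjusted p = 3.5e-08), and was higher in TNFKO LPS than in LPS mice (log2 change 2.39 ± 0.32, adjusted p = 6.6e-06). Slc37a4, which encodes the transporter that feeds glucose 6-phosphatase, was higher in TNFKO LPS kidneys, at 138, 154, 135 and 171 in TNFKO LPS mice, against 50.03, 77.5, 30.1 and 51.7 in LPS mice (log2 change 1.57 ± 0.17, adjusted p = 3.6e-07). Ppargc1a, a coactivator gene of gluconeogenesis and mitochondria, had 70.97, 85.4, 119 and 96.6 in TNFKO LPS mice, against 23.3, 59.6, 16.9 and 20.3 in LPS mice in kidney (log2 change 1.76 ± 0.24, adjusted p = 6.9e-06).

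Hif1a, which encodes the hypoxia-inducible factor subunit that drives glycolysis genes, was among the 3 most changed genes of these lists, and higher with LPS, in lung, bone marrow, colon and spleen. In lung it was 81.7, 49.8, 136 and 106 in LPS mice, against 35.1, 26.5, 19.3 and 19.4 in PBS mice (log2 change 1.81 ± 0.22, adjusted p = 2.8e-07). In spleen TNFKO LPS mice were lower than LPS mice, at 39.5, 44.7, 54.1 and 50.6 in TNFKO LPS mice, against 100.4, 51.3, 126 and 72.1 in LPS mice (log2 change -0.81 ± 0.20, adjusted p = 0.0151), and Hif1a was also lower in TNFKO LPS mice, among the 3 most changed, in bone marrow, colon, heart and small intestine. Ppp1r3b, which encodes a glycogen-targeting phosphatase subunit, fell in brown fat, at 14.96, 11.4, 3.57 and 8.15 in LPS mice, against 93.7, 119, 74.8 and 74.4 in PBS mice (log2 change -3.23 ± 0.34, adjusted p = 3.4e-07).

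TNFKO LPS mice set against PBS mice had 55 of 511 pairs higher (10.8% against 6.71% of all tests) and 81 lower (15.9% against 6.13%). This comparison shares its samples with the others, so here only its values are given beside theirs. In kidney the log2 change against PBS mice was 0.35 in TNFKO LPS mice and -1.86 in LPS mice for Pck1. For G6pc it was -2.51 in TNFKO LPS mice and -2.36 in LPS mice. For Slc2a2 it was -0.30 in TNFKO LPS mice and -2.31 in LPS mice, and for Tpi1 -0.17 and -0.99. In liver it was 0.11 in TNFKO LPS mice and -2.57 in LPS mice for Pfkfb1, and -3.71 and -4.65 for Slc2a2. In brown fat it was -0.31 and -1.89 for Gys2.

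Some pairs were called in TNFKO LPS against PBS mice and in neither other comparison. That describes where calls fell, and a difference between the comparisons was not tested. TNFKO LPS and PBS mice differ in both strain and LPS. Hk3 in lung was 7.62 to 15.2 in TNFKO LPS mice, 4.39 to 6.53 in LPS mice and 0 to 4.84 in PBS mice, and Pfkfb1 in muscle 53.4 to 75.2 in TNFKO LPS mice, 43.1 to 50.7 in LPS mice and 33.2 to 46.9 in PBS mice, both highest in TNFKO LPS mice (1.75 and 0.79). Pgam1 was higher in spleen, at 50.6 to 68.8 in TNFKO LPS mice, 28.9 to 64.4 in LPS mice and 28.4 to 39.7 in PBS mice (0.86), and lower in skin, at 34.4 to 44.1 in TNFKO LPS mice, 37.9 to 46.4 in LPS mice and 47.6 to 53.2 in PBS mice (-0.43). Eno3 and Pfkm in skin were lowest in TNFKO LPS mice, at 217 to 472 in TNFKO LPS mice, 331 to 589 in LPS mice and 527 to 667 in PBS mice and 37.3 to 75.9 in TNFKO LPS mice, 69.3 to 84.2 in LPS mice and 80.3 to 96.1 in PBS mice (-0.79 and -0.64), beside the muscle fibre sums given for skin. Eno1 in small intestine was 83.1 to 121 in TNFKO LPS mice, 115 to 135 in LPS mice and 138 to 193 in PBS mice (-0.65). Hk3 in lung had a log2 change of 1.13 in TNFKO LPS against PBS mice without mouse 1. Pgam1 in skin lost its call in TNFKO LPS against PBS mice without mouse 1, 2, 3, 4, 5, 7, 9, 10 or 11 (adjusted p up to 0.134). Pfkm in skin lost its call in TNFKO LPS against PBS mice without mouse 1, 2, 3, 4, 9 or 11 (adjusted p up to 0.134).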

How the data were processed

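Bulk RNA-seq was measured in 180 libraries, 15 tissues of 12 mice, grouped by the genotype and treatment labels. The authors deposited 1 table of values named CPM, whose columns sum to 703690 to 1603067 and not to a common total, so the unit is called signal here. The submitters' processing notes name edgeR, FastQC, MultiQC and the mm10 build, without roles or versions, and the aligner and counter are not named there. The signal was a whole multiple of 1 count in all values of every library (100% within 0.1 counts), so the deposited signal gave back the count of each gene. Per the labels' protocols the primer carried a molecular identifier, and whether counts were reduced to molecules is not stated.

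Each tissue was fitted with limma 3.58.1 in R 4.3.3 (trend over mean level) on log2(signal + 1), with 3 groups of 4 mice, 9 residual degrees of freedom and the filter given above. P-values were adjusted by Benjamini-Hochberg over all genes tested in a tissue and comparison. Tissue differences were tested with limma's moderated F over all libraries jointly. The code was tested on simulated data. Alternatives were a pseudocount of 0.25, no filter, median-of-ratios scaling, the 2 groups alone, edgeR 4.0.16's quasi-likelihood test on the recovered counts, and leaving out each mouse. Leaving out 5 libraries, or inguinal lymph node, was chosen after seeing the data. No replicate pair agreed within sampling noise (chi-square per degree of freedom at least 1.18 over 270 pairs).

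The members and lists were chosen with earlier results of these data known. Pairs of gene and tissue were named by a rule: a call, a mean signal of 10 or more in the higher group and no overlap, up to 6 per tissue by size of change, plus genes called in 8 or more tissues and tests against the direction of their role. Of 170 pairs given, 52 lie outside the part of that rule on calls, signal, overlap and 6 per tissue. Some of these, such as Slc2a1 in liver, fall under its other parts. The rest were chosen after their values were seen. The labels name mice as the source of each library, and p-values measure the spread between mice. Marker genes were summed over fixed lists of cell types.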

Additional observations from a re-analysis of the deposited data

Results flagged for a closer look

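In 18 of 510 groups of 4 mice examined (3.53%), 1 mouse stood far from the other 3, where chance gives about 1 in 20. Among TNFKO LPS mice, Pck1 in kidney reached 3774 in mouse 12 against 2540 to 2715 in the others. Bone marrow of the same mouse had the highest Gapdh (844) and Pkm (509). The TNFKO LPS mice also held single values of 136 for Hk2 in heart (mouse 10) and 268 for Ldhb in thymus, 133 for Pfkp in brown fat and 10.9 for Slc2a4 in kidney (all mouse 11). Fbp1 in lymph node was 11.05 in mouse 9.

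Among LPS mice, all 3 were mouse 6, with Pck1 in skin at 151 against 45.3 to 59.1 in the others, Pdk1 in brown fat at 36.8 against 48.6 to 48.9, and Pkm in bone marrow at 447 against 461 to 463. Among PBS mice, Hk3 was 0 in lung of mouse 1 against 4.42 to 4.84 in the others, and 5.37 in spleen of mouse 3. Hk2 in small intestine of mouse 1 was 22.1 against 36.7 to 38.3. Pck1 in heart of mouse 4 was 141 and Gapdh in bone marrow of mouse 2 was 368. Pfkm stood at 1712 in muscle of mouse 2 and at 96.1 in skin of mouse 3.

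By the joint moderated F test, the difference of LPS from PBS mice varied among tissues for 34 of 35 genes (65.3% of all genes). The difference of TNFKO LPS from LPS mice varied for 20 of 35 (25.6% of all genes).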

How the results depend on the processing

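Of the called results given, 115 of 148 in LPS against PBS mice, 27 of 49 in TNFKO LPS against LPS mice and 7 of 9 in TNFKO LPS against PBS mice kept their direction and their call under every alternative, and those that did not are named beside their values. The counts of member calls stayed within 1.5 times the main count under another pseudocount, no filter, median-of-ratios scaling, the 2 groups alone, edgeR, and without the libraries that stand apart or inguinal lymph node. Leaving out 1 mouse at a time, the calls ranged from 66 to 77 higher and 83 to 99 lower in LPS against PBS mice. They ranged from 22 to 32 higher and 13 to 38 lower in TNFKO LPS against LPS mice, where the main count of lower pairs was 24. That count was 38 without LPS mouse 6, 13 without LPS mouse 7 and 15 without LPS mouse 8, and the cause was not tested. In TNFKO LPS against PBS mice the calls ranged from 47 to 62 higher and 66 to 86 lower.

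The count of genes whose response differed among tissues ranged from 33 to 35 in LPS against PBS mice and from 13 to 21 in TNFKO LPS against LPS mice. It was 13 without LPS mouse 8, where 16.4% of all genes were called, and 21 without LPS mouse 6, where 30.1% were, against 20 and 25.6% with all mice. With the mouse as a replicate block, since the same animal gave all its tissues, those counts were 34 and 21. No paired analysis was possible because the groups share no mice within a tissue. For G6pc in Liver, TNFKO LPS against LPS, the change was not called and reversed sign without LPS mouse 6 (0.0743, adjusted p = 0.851) and ranged from -0.253 to 0.0743 without each mouse. The median change of all genes was at most 0.09 in size on the log2 scale in any tissue and comparison under each alternative. Low counts limit Pklr in liver, Pfkfb1 and Slc2a2 in livers of LPS mice, Gys2 in kidney, Hk3 in lung and G6pc in lymph node. There 1 count is worth a signal of 1.12 to 2.00 in liver, 0.473 to 0.924 in kidney, 0.632 to 1.46 in lung and 0.352 to 0.609 in lymph node.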
